A study of Mus musculus with 32 samples.

Results

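The response of the uninjured wild-type mouse liver to triiodothyronine (T3), the active thyroid hormone, was measured in 8 of the 32 bulk RNA libraries of the series. The 8 were chosen by their labels: 4 libraries of wild-type mice given T3 and injected with olive oil, and 4 libraries of wild-type mice given phosphate-buffered saline (PBS) and injected with olive oil. All mice of the series ate the PTU/LID diet, a low-iodine diet with propylthiouracil that stops thyroid hormone synthesis, and the labels call the PBS animals hypothyroid. T3 was given in the drinking water at 1 µg/ml during the last of the 4 weeks in which the mice had 9 injections, 2 a week, and RNA was purified 24 hours after the last one. T3 livers and PBS livers below are these oil-injected wild-type groups, so the comparison is between hypothyroid mice with the hormone given back for a week and mice left hypothyroid. The other 24 libraries come from mice labelled as knockouts of Thrb, the gene of the beta form of the thyroid hormone receptor, from mice injected with carbon tetrachloride (CCl4), a hepatotoxin, or from both. They entered the same statistical fit and are used here only to ask where the uninjured wild-type response differs. The strain, the age and the sex of the mice are not given in the labels used here. Transcripts of 4 Y-linked genes held 2 counts over the 8 libraries together.

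Thyroid hormone acts through a pair of nuclear receptors, encoded by Thra and Thrb, which sit on DNA with a retinoid X receptor, hold genes down through corepressors when no hormone is bound, and recruit coactivators when T3 binds. Hepatocytes carry mainly the beta receptor. In liver the hormone is known for driving lipid synthesis and cholesterol turnover, for raising energy expenditure, for changing the proteins that carry and deiodinate the hormone itself, and for stimulating hepatocyte division.

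The 8 libraries held 19260459 to 26118055 counts each, and 19792 to 20760 genes had at least 1 count. The first principal component of the 8 libraries held 71.6% of their variance and separated the T3 livers from the PBS livers, while the second held 7.11%. Hepatocyte transcripts were abundant in all 8, and albumin (Alb) alone took 6.03% to 7.69% of the counts in the T3 livers and 9.36% to 11.9% in the PBS livers. The 10 most abundant genes held 16.3% to 18.5% of the counts on T3 and 19.2% to 22.6% on PBS, and mitochondrial transcripts held 4.93% to 5.34% on T3 and 4.79% to 5.85% on PBS. T3 replicate 4 lay farther from the mean of its group than the other T3 livers did, at a distance of 47.6 in log2 CPM (counts scaled to a common library size) over all tested genes against 37.7 to 40 for the others, and PBS livers lay at 38 to 47.8. Results that rest on that library are given without it as well.

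The hormone response elements of T3 target genes are built from the letters AGGTCA, so the promoters of established targets that responded are shown as the place where such letters were looked for. Each is the stretch of 250 bases on the coding strand before the start that RefSeq gives on GRCm38.p6, and the windows of Gpd2 and Bcl3 enter the genes as GENCODE draws them. Dio1 encodes the deiodinase that converts thyroxine to T3 in liver (chr4:107307169-107307418, minus strand), Gpd2 encodes the mitochondrial glycerol phosphate dehydrogenase (chr2:57237428-57237677, plus strand), and Bcl3 encodes a nuclear cofactor of NF-kB (chr7:19822756-19823005, minus strand).
Dio1: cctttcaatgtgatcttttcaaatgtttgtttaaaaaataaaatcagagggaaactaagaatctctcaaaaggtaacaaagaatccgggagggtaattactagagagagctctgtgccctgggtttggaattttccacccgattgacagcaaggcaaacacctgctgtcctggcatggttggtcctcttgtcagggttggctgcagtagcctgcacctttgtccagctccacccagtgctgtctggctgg
Gpd2: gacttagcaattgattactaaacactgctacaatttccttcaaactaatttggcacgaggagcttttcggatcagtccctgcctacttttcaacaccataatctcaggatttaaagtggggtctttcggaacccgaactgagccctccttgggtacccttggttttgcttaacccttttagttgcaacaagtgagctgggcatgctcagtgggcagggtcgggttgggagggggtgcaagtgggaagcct
Bcl3: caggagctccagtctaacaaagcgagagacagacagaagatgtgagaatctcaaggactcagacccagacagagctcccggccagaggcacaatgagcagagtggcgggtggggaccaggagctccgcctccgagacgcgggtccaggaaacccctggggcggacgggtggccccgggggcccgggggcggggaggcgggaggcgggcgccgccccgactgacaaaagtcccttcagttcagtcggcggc
None of these 3 windows holds AGGTCA on either strand, and for that reason no letters are in capitals. Promoters were matched for 11347 of the 15599 genes tested. AGGTCA on either strand was in 11.1% of these, in 12.6% of the promoters of genes called higher on T3, in 10.8% of those called lower and in 10.7% of those not called. Among genes called higher by at least 16-fold it was in 24 of 137 promoters, which is 17.5%, and among genes called lower by at least 16-fold it was in 5 of 61, which is 8.2%. A direct repeat of AGGTCA with 4 bases between its copies, searched on both strands, was in 0 of the 11347. These are shares of letters in a short window and say nothing of whether a receptor binds there.

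Of the 15599 genes tested, 5501 (35.3%) were called at an adjusted p under 0.05, 2970 higher on T3 (19.0%) and 2531 lower (16.2%). All adjusted p-values are from edgeR's quasi-likelihood test with Benjamini-Hochberg adjustment over the genes tested, and fold changes are log2 values of T3 over PBS, printed with an SE. That SE was worked back from the test, as the absolute log2 fold change divided by the square root of the F statistic. It is unreliable and can be very wide where a group held almost no counts. The median log2 fold change of all genes tested was -0.02. When libraries were scaled by their totals alone, with no correction for composition, that median moved by 0.12 and 3427 genes were called higher and 1683 lower, so 67.1% of the called genes were higher in place of 54%. The response was wide in size: 1620 genes rose and 1105 fell by at least 2-fold, 673 rose and 381 fell by at least 4-fold, and 198 rose and 98 fell by at least 16-fold. Genes called higher summed to 21.7% to 25.1% of the nominal CPM total on T3 and 10.1% to 11.1% on PBS. Genes called lower summed to 18.8% to 23.2% and 35.5% to 44.7%. Scaled CPM are not shares of counts. The 4 T3 values lay wholly above or wholly below the 4 PBS values in 6010 genes (38.5%), of which 4744 were called. Of the 10098 genes not called, 3905 (38.7%) had a 95% interval, built from the SE above, within 1.5-fold in either direction. The intervals of the others reached beyond it. Where the call of a gene named below was lost when 1 library was left out or with another scaling or filter, or the fold change printed for it moved by more than 1.5 times without 1 library, this is said beside it. A lower level of a transcript that belongs to 1 cell type can come from fewer of those cells or from less RNA in each, and bulk RNA cannot tell these apart.

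**Figure D1:**
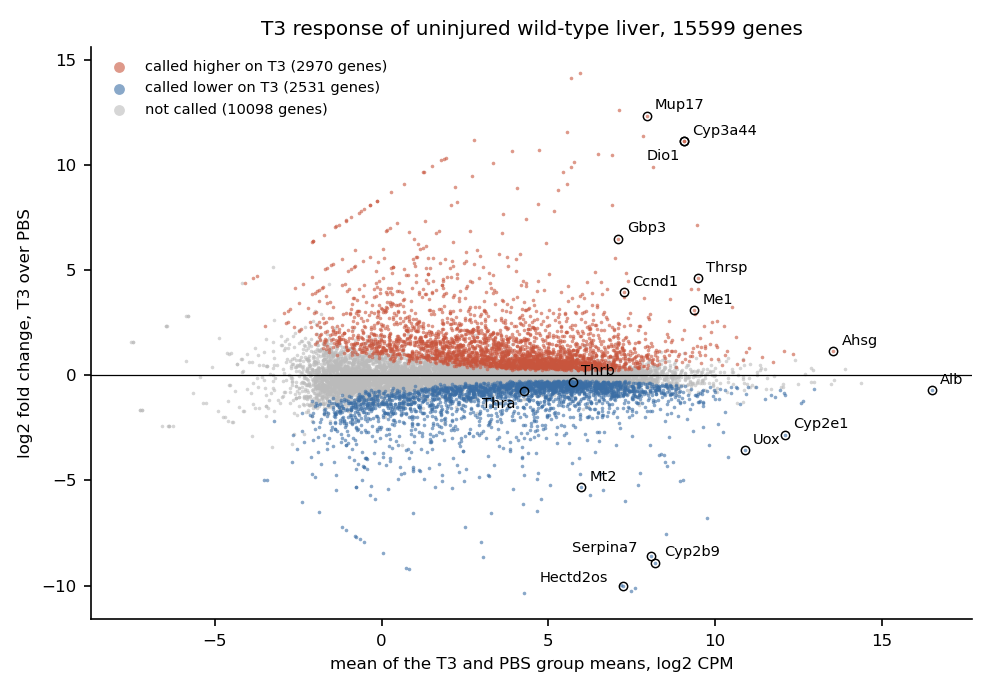
Log2 fold change of T3 over PBS (vertical) against the mean level of the T3 and PBS livers in log2 CPM (horizontal) for the 15599 genes tested, without the 7 that had 0 counts in all 8 libraries. Red points are the 2970 genes called higher on T3, blue points the 2531 called lower and grey points the rest, and Dio1, Mup17 and Cyp3a44 lie above a log2 fold change of 11 while Hectd2os lies below -10.

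The receptors themselves moved little. Thrb (ENSMUSG00000021779, chr14:17660261-18038090), the receptor gene that the study's knockout targets, had 44, 44.3, 60.6 and 43.2 CPM in T3 livers, against 56.9, 62.7, 66.4 and 50.1 CPM in PBS livers. T3 replicate 3 was well above the other T3 livers and the groups overlapped, and Thrb was not called (log2 fold change -0.30 ± 0.21, adjusted p = 0.282). Thra (ENSMUSG00000058756, chr11:98740638-98769006), which encodes the alpha receptor, had 14.5, 13.5, 17.2 and 11.7 CPM in T3 livers, against 28.9, 22, 19.6 and 25.5 CPM in PBS livers. Every T3 liver was below every PBS liver, and Thra fell (log2 fold change -0.76 ± 0.21, adjusted p = 0.00536). Of the receptors, dimer partners and coregulators, 2 of 16 tested were called higher and 2 lower, against the shares of 19.0% and 16.2% over all genes, and their median was 0.04. Rxrb, a retinoid X receptor and dimer partner, ranged over 38.3 to 42.4 CPM on T3 and 26.2 to 30.3 CPM on PBS and rose (log2 fold change 0.49 ± 0.09, adjusted p = 9.91e-05). Tbl1x, a subunit of the corepressor complex, fell (log2 fold change -0.65 ± 0.16, adjusted p = 0.00183), with 43 to 50.4 CPM on T3 and 67.5 to 74 CPM on PBS. The corepressor Ncor1 had a log2 fold change of -0.17 ± 0.14 and the coactivators Ncoa1, Ncoa2 and Ncoa3 had 0.21 ± 0.12, 0.15 ± 0.12 and 0.21 ± 0.13, none of them called.

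The genes that handle the hormone changed far more. Dio1 (ENSMUSG00000034785, chr4:107291465-107307169) had 1143, 1185, 1084 and 857 CPM in T3 livers, against 0.45, 0.658, 0.295 and 0.523 CPM in PBS livers. All 4 PBS livers were under 1 CPM while all 4 T3 livers held the transcript at high levels, the highest T3 value being in replicate 2 and the lowest in replicate 4 (log2 fold change 11.12 ± 0.45, adjusted p = 1.07e-16). Dio3, which encodes the deiodinase that inactivates T3, moved the other way, with 0.0472, 0, 0 and 0 CPM in T3 livers, against 1.46, 0.548, 0.631 and 0.418 CPM in PBS livers. The 4 T3 values were all below the 4 PBS values (log2 fold change -5.45 ± 0.85, adjusted p = 1.47e-05, and -7.03 without T3 replicate 1), but the T3 group held so few counts that the ratio of PBS over T3 counts was 64 with a 95% counting interval of 11 to 2569, and without T3 replicate 1 Dio3 was at least 16-fold lower on T3. Its antisense neighbour Dio3os had 0, 0, 0.046 and 0.0878 CPM in T3 livers, against 22.7, 21.6, 11.4 and 9.52 CPM in PBS livers, a ratio of PBS over T3 counts of 453 (95% counting interval 154 to 2197), and of 996 (179 to 39389) without T3 replicate 4. Serpina7 (ENSMUSG00000031271, chrX:139079257-139085236), which encodes thyroxine-binding globulin, a hormone carrier of plasma, had 2.12, 1.06, 0.874 and 1.45 CPM in T3 livers, against 303, 768, 669 and 428 CPM in PBS livers. Its T3 livers were all close to the floor and its lowest PBS liver, replicate 1, was still far above all of them (log2 fold change -8.62 ± 0.81, adjusted p = 2.27e-09).

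Of all the genes of hormone activation, transport and binding, 3 of 10 tested were called higher and 6 lower, and their median was -1.22. The transporters differed in direction. Slc16a10, an aromatic amino acid carrier that also moves T3, had 258, 217, 222 and 147 CPM in T3 livers, against 88.2, 96.8, 84.4 and 69.8 CPM in PBS livers. Slc16a10 rose (log2 fold change 1.32 ± 0.20, adjusted p = 5.00e-06). Slco1b2 and Slco1a4, organic anion carriers of the hepatocyte membrane, fell, with 179 ± 32.6 CPM on T3 and 1125 ± 298 CPM on PBS for Slco1b2 (log2 fold change -2.65 ± 0.53, adjusted p = 2.47e-04) and 55 ± 20.4 CPM on T3 and 189.7 ± 45.7 CPM on PBS for Slco1a4 (log2 fold change -1.79 ± 0.48, adjusted p = 0.00406). Crym, a cytosolic T3-binding protein, averaged 0.575 ± 0.181 CPM on T3 and 5.06 ± 3.29 CPM on PBS. Crym fell (log2 fold change -3.14 ± 0.58, adjusted p = 1.02e-04). Ttr, the carrier transthyretin, had 5972, 7054, 6081 and 5805.5 CPM in T3 livers, against 11914, 10440.1, 9316.5 and 7472.5 CPM in PBS livers. Its groups did not overlap, but the call (log2 fold change -0.65 ± 0.25, adjusted p = 0.0409) was lost with libraries scaled by their totals alone (adjusted p = 0.0504), without a filter on low counts (adjusted p = 0.0745) and without T3 replicates 1, 3 or 4 or PBS replicates 1, 2 or 3 (adjusted p of 0.0583 to 0.126).

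The largest rises, beside Dio1, belonged to the major urinary proteins and the Cyp3a enzymes. Mup18, which encodes a urinary pheromone carrier made by liver, had 53, 119, 104 and 219 CPM on T3, against 0, 0, 0 and 0 CPM on PBS, and with 0 counts in the PBS group it was at least 3303-fold higher on T3, against a floor of 3 counts over that group. Mup15, a neighbouring member, had 32.9, 68.2, 79 and 234 CPM on T3, against 0, 0, 0 and 0 CPM on PBS and was at least 2798-fold higher, or at least 1579-fold without T3 replicate 4. T3 replicate 4 held the most in both. Mup17 had 244, 429.7, 411 and 888 CPM on T3, against 0.169, 0.219, 0 and 0 CPM on PBS (log2 fold change 12.34 ± 0.96, adjusted p = 7.40e-11, and 13.12 without PBS replicate 2). The pseudogene Mup-ps12 had 13.4, 18.1, 13.5 and 9.13 CPM on T3, against 0, 0, 0 and 0 CPM on PBS and was at least 352-fold higher. Cyp3a44, a steroid-metabolizing cytochrome P450, had 822, 1238, 1256 and 960.4 CPM on T3, against 0.225, 0.768, 0.379 and 0.523 CPM on PBS, with every PBS liver under 1 CPM (log2 fold change 11.13 ± 0.65, adjusted p = 1.43e-13). Cyp3a16, a close relative, had 437, 498, 470.0 and 408 CPM on T3, against 0.113, 0.274, 0.168 and 0.105 CPM on PBS (log2 fold change 11.38 ± 0.61, adjusted p = 3.89e-14). Cyp3a41a had 57.6, 97.1, 125 and 97.3 CPM on T3, against 0.113, 0, 0 and 0 CPM on PBS, and its PBS counts were all in replicate 1, which gave a ratio of 3725 (95% counting interval 1031 to 30767), and without that replicate it was at least 1924-fold higher. With Dio1 these are the 8 largest rises of called genes without overlap and with a mean of 5 CPM or more on T3 or PBS. Members of these families are near copies of each other and can exchange reads, so the split between members is uncertain.

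The largest falls were of the same order and again took in xenobiotic enzymes. Cyp2b13, a cytochrome P450, had 0.614, 0.654, 0 and 0.132 CPM on T3, against 512, 420.4, 439 and 185 CPM on PBS (log2 fold change -10.13 ± 0.96, adjusted p = 2.79e-09). Cyp2b9, its neighbour and like it an enzyme of female mouse liver, had 3.3, 1.51, 0.138 and 0 CPM on T3, against 711, 598, 631 and 424 CPM on PBS (log2 fold change -8.91 ± 0.99, adjusted p = 4.61e-08, and -10.11 without T3 replicate 1). In neither of these genes did any T3 liver come near a PBS liver. Cyp2c54, which belongs to the epoxygenase-rich Cyp2c family, had 0.566, 0.503, 0.092 and 0 CPM on T3, against 461, 255, 312 and 127 CPM on PBS (log2 fold change -9.97 ± 1.01, adjusted p = 9.53e-09). Hectd2os, a noncoding transcript opposite Hectd2, had 0.425, 0.201, 0.276 and 0.22 CPM on T3, against 430.0, 286, 289 and 193 CPM on PBS (log2 fold change -10.03 ± 0.98, adjusted p = 4.61e-09), and reads where they overlap cannot be assigned without the strand. Mup21 went against most of its family, with 0.0472, 0.0503, 0 and 0 CPM on T3, against 18.7, 33.1, 41.2 and 60.4 CPM on PBS, which is a ratio of PBS over T3 counts of 1664 (95% counting interval 460 to 13745), and of 2504 or 2554 without T3 replicate 1 or 2. Serpina7 and Dio3os, given above, complete the 7 largest falls given here.

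By the amount of transcript moved, the leading genes were plasma proteins and metabolic enzymes. Ahsg, which encodes the plasma glycoprotein fetuin-A, had 16085.5, 17665, 15177 and 16459 CPM in T3 livers, against 6072.5, 7118, 9840.3 and 6904 CPM in PBS livers. Every T3 liver was above every PBS liver (log2 fold change 1.13 ± 0.22, adjusted p = 1.93e-04). Serpina1b, an alpha-1 antitrypsin, had 4918.5 to 8736 CPM on T3 and 2697 to 4324 CPM on PBS. Serpina1b rose (log2 fold change 1.01 ± 0.20, adjusted p = 1.87e-04). Hpx, the haem carrier hemopexin, had 4373 to 6753 CPM on T3 and 2081 to 3404 CPM on PBS (log2 fold change 1.17 ± 0.27, adjusted p = 0.00101). Cyp2a4, a steroid hydroxylase, had 2351, 2613, 2849 and 2642 CPM on T3, against 68.1, 435, 179 and 435 CPM on PBS, and its PBS livers spread widely (log2 fold change 3.23 ± 0.43, adjusted p = 1.01e-06). Gpx1, a selenium-dependent glutathione peroxidase, had 2043 to 3134 CPM on T3 and 526 to 869 CPM on PBS (log2 fold change 1.84 ± 0.25, adjusted p = 1.18e-06). Apoc3, an apolipoprotein that slows triglyceride clearance, had 2145 to 3819.8 CPM on T3 and 859 to 1648 CPM on PBS (log2 fold change 1.29 ± 0.24, adjusted p = 8.96e-05).

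On the other side, Alb had 77095, 79962, 70897 and 55238.5 CPM in T3 livers, against 139566, 115051.5, 110665 and 94296 CPM in PBS livers. Every T3 liver was below every PBS liver (log2 fold change -0.70 ± 0.23, adjusted p = 0.0173), but the call was lost without a filter on low counts (adjusted p = 0.0706) and without T3 replicate 4 or PBS replicate 1 (adjusted p of 0.0674 to 0.0675). Cyp2e1, the ethanol-inducible cytochrome P450, had 1171, 1293, 933 and 889 CPM in T3 livers, against 7160.2, 11369.5, 8228 and 3795 CPM in PBS livers. Cyp2e1 fell (log2 fold change -2.83 ± 0.45, adjusted p = 1.15e-05). Uox, urate oxidase, had 263, 343, 328 and 238 CPM in T3 livers, against 3126, 3514, 3941 and 3355 CPM in PBS livers. Uox fell (log2 fold change -3.57 ± 0.31, adjusted p = 4.86e-10), with little spread inside either group. Gstm1, a glutathione transferase, had 2885 to 4463.5 CPM on T3 and 6616 to 11123 CPM on PBS (log2 fold change -1.32 ± 0.39, adjusted p = 0.00839). Apoa2, an apolipoprotein of high-density lipoprotein, had 2874 to 4983 CPM on T3 and 6226 to 10578.5 CPM on PBS (log2 fold change -1.22 ± 0.24, adjusted p = 2.12e-04).

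Genes known as direct or early T3 targets in liver rose in most cases. Of the established targets, 9 of 15 tested were called higher and 0 lower, and their median log2 fold change was 3.02, against -0.02 over all genes. Thrsp, a lipogenic nuclear protein named for its response to thyroid hormone, had 1284, 1922, 2084 and 231 CPM in T3 livers, against 83.4, 36.4, 47 and 61.2 CPM in PBS livers. T3 replicate 4 was far below the other T3 livers but still above every PBS liver (log2 fold change 4.6 ± 0.61, adjusted p = 8.67e-07). Me1, malic enzyme, which supplies NADPH for fatty acid synthesis, had 1494.5, 1050.2, 1254 and 924 CPM in T3 livers, against 180.4, 106, 122 and 142 CPM in PBS livers (log2 fold change 3.10 ± 0.35, adjusted p = 5.25e-08). Gpd2 (ENSMUSG00000026827, chr2:57237635-57370719), whose promoter is printed above, had 168, 117, 146 and 161 CPM in T3 livers, against 7.65, 8.94, 12.3 and 10.2 CPM in PBS livers. The spread within each group was small beside the difference (log2 fold change 3.91 ± 0.21, adjusted p = 3.96e-14). Bcl3 (ENSMUSG00000053175, chr7:19808462-19822770) had 96.3, 85.9, 77.5 and 94 CPM in T3 livers, against 6.8, 8.01, 8.54 and 7.16 CPM in PBS livers (log2 fold change 3.53 ± 0.32, adjusted p = 1.22e-09). Idh3a, a subunit of the NAD-dependent isocitrate dehydrogenase, had 222, 171, 184 and 143 CPM in T3 livers, against 14.8, 22.8, 22.8 and 28.1 CPM in PBS livers (log2 fold change 3.02 ± 0.30, adjusted p = 5.47e-09). Hr, a nuclear corepressor induced by thyroid hormone in brain and skin, averaged 32 ± 10.1 CPM on T3 and 0.703 ± 0.216 CPM on PBS. Hr rose (log2 fold change 5.52 ± 0.59, adjusted p = 2.67e-08).

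Other members of that list were less even. Fgf21, a hepatokine, had 12.8, 3.47, 4.51 and 92.2 CPM in T3 livers, against 3.77, 2.63, 1.39 and 1.36 CPM in PBS livers. The high T3 mean came from replicate 4, the groups overlapped, and the call (log2 fold change 3.64 ± 0.88, adjusted p = 0.00167) was lost without T3 replicate 4 (log2 fold change 1.62, adjusted p = 0.0902). Upp2, a uridine phosphorylase, averaged 259 ± 170.2 CPM on T3 and 50.4 ± 23.5 CPM on PBS. Upp2 rose (log2 fold change 2.36 ± 0.76, adjusted p = 0.0157), a call lost without T3 replicate 2 or PBS replicate 1 (adjusted p of 0.0531 to 0.0697). Cyp7a1, the rate-limiting enzyme of bile acid synthesis, averaged 197 ± 98.2 CPM on T3 and 69 ± 45 CPM on PBS, and although every T3 liver was above every PBS liver it was not called (log2 fold change 1.51 ± 0.86, adjusted p = 0.179). Klf9, a transcription factor induced by T3 in many cells, had a log2 fold change of -0.37 ± 0.42, Cpt1a, the gate of mitochondrial fatty acid uptake, had 0.10 ± 0.31, and Ppargc1a, a coactivator of mitochondrial genes, had -0.27 ± 0.26, none of them called. Pdk4, a kinase that closes pyruvate dehydrogenase, averaged 101 ± 102 CPM on T3 and 36.7 ± 14.6 CPM on PBS with a T3 SD as large as its mean, and was not called (log2 fold change 1.46 ± 0.69, adjusted p = 0.0981).

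**Figure D2:**
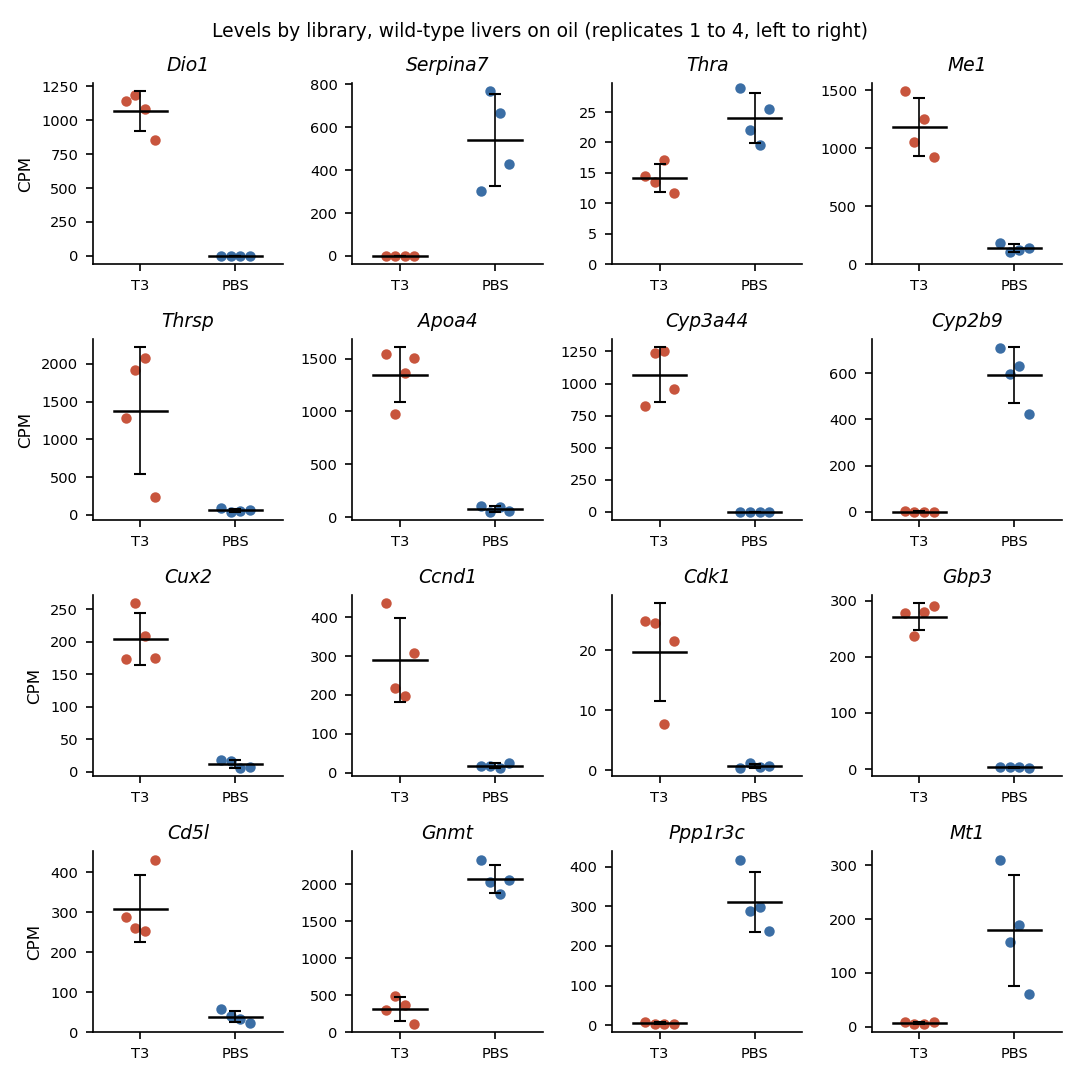
Level in CPM (vertical, linear scale, each gene on its own range) of 16 genes in each library, T3 livers left of PBS livers, with each point 1 library, the bar the mean of 4 and the line the SD. The groups do not overlap in any of the 16, and T3 replicate 4 is the low point of the T3 livers in Thrsp and Gnmt.

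Some genes of fatty acid synthesis rose and others did not pass the test. Of the lipogenesis genes, 11 of 20 tested were called higher and 1 lower. Their median was 0.87, and their summed level overlapped between groups, with 12044 to 25106 on T3 and 12481 to 22644 on PBS, in CPM. Fasn, fatty acid synthase, had 2034, 1992, 3007 and 1143 CPM in T3 livers, against 570.5, 263, 311 and 484 CPM in PBS livers. Fasn rose (log2 fold change 2.33 ± 0.46, adjusted p = 2.19e-04), again lowest among T3 livers in replicate 4. Acaca, acetyl-CoA carboxylase of the cytosol, had 178, 149, 223 and 129 CPM in T3 livers, against 82.9, 73.5, 53.7 and 90.3 CPM in PBS livers. Acaca rose (log2 fold change 1.18 ± 0.23, adjusted p = 2.07e-04). Elovl6, a fatty acid elongase, averaged 368 ± 106 CPM on T3 and 110.5 ± 26 CPM on PBS (log2 fold change 1.74 ± 0.35, adjusted p = 2.65e-04). Fads2, a desaturase, averaged 608 ± 140.0 CPM on T3 and 207 ± 50.6 CPM on PBS (log2 fold change 1.56 ± 0.38, adjusted p = 0.00195). Pnpla3, a lipid droplet protein, averaged 181 ± 136 CPM on T3 and 8.34 ± 5.23 CPM on PBS. Pnpla3 rose (log2 fold change 4.45 ± 0.91, adjusted p = 2.90e-04, and 3.81 without T3 replicate 3). Acacb, the mitochondrial acetyl-CoA carboxylase, rose (log2 fold change 1.29 ± 0.45, adjusted p = 0.0275), a call lost without T3 replicates 1, 2 or 3 or PBS replicates 2 or 3 (adjusted p of 0.052 to 0.0994). Mlxipl, which encodes the carbohydrate-responsive factor ChREBP, averaged 826 ± 195 CPM on T3 and 439.8 ± 64.4 CPM on PBS. Mlxipl rose (log2 fold change 0.91 ± 0.27, adjusted p = 0.00843).

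Srebf1, which encodes the lipogenic factor SREBP-1, moved against these enzymes. It had 103, 140.1, 224 and 80.1 CPM in T3 livers, against 420.0, 217, 179.5 and 298 CPM in PBS livers. T3 replicate 3 was above PBS replicates 2 and 3, so the groups overlapped, and the fall (log2 fold change -1.03 ± 0.31, adjusted p = 0.00965) was lost without PBS replicate 1 (adjusted p = 0.0673). Scd1, the stearoyl-CoA desaturase and an abundant transcript in both groups, averaged 9675 ± 3055 CPM on T3 and 13048 ± 4244 CPM on PBS and was not called (log2 fold change -0.43 ± 0.47, adjusted p = 0.512). Acly, which makes cytosolic acetyl-CoA, averaged 345 ± 129 CPM on T3 and 498 ± 267 CPM on PBS (log2 fold change -0.53 ± 0.43, adjusted p = 0.356). Pklr, liver pyruvate kinase, had a log2 fold change of -0.01 ± 0.28, neither called.

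Most genes of cholesterol synthesis rose. Of the genes of cholesterol synthesis and uptake, 17 of 23 tested were called higher and 0 lower, and the median was 1.36. Cyp51, the lanosterol demethylase, had 631, 571, 675.2 and 513 CPM in T3 livers, against 207, 111, 128 and 242 CPM in PBS livers (log2 fold change 1.80 ± 0.37, adjusted p = 3.58e-04). Nsdhl, a sterol dehydrogenase, had 217 to 268 CPM on T3 and 45.7 to 97.3 CPM on PBS (log2 fold change 1.78 ± 0.38, adjusted p = 5.31e-04). Hsd17b7, a sterol ketoreductase, had 172 to 257 CPM on T3 and 51.5 to 99.2 CPM on PBS (log2 fold change 1.46 ± 0.31, adjusted p = 4.27e-04). Sc5d, a sterol desaturase, had 1173 to 1744 CPM on T3 and 425 to 772 CPM on PBS (log2 fold change 1.42 ± 0.33, adjusted p = 0.00107). In each of these the lowest T3 liver was above the highest PBS liver. Insig1, the sterol-regulated brake on this pathway, averaged 462 ± 171 CPM on T3 and 489.5 ± 163 CPM on PBS and was not called (log2 fold change -0.08 ± 0.42). Several calls of moderate size were lost without some library, among them Srebf2, without PBS replicate 2 (adjusted p = 0.0524), and Mvk, without T3 replicates 1, 2 or 3 or PBS replicates 1, 2 or 3 (adjusted p of 0.0574 to 0.111).

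Of genes of lipoproteins and sterol export, 7 of 23 tested were called higher and 5 lower (all genes: 19.0% and 16.2%). Their median was 0.28. The count lower was 3 without T3 replicates 3 or 4 or PBS replicates 1, 2 or 3. Apoa4, an apolipoprotein of triglyceride-rich particles, had 1543, 977, 1362 and 1507 CPM in T3 livers, against 104, 48.3, 99.4 and 58.9 CPM in PBS livers. Apoa4 rose (log2 fold change 4.12 ± 0.48, adjusted p = 1.06e-07). Mttp, the microsomal transfer protein that lipidates apolipoprotein B, had 561 to 736 CPM on T3 and 270.5 to 361 CPM on PBS. Mttp rose (log2 fold change 1.02 ± 0.16, adjusted p = 8.79e-06). Apobec1, the enzyme that edits apolipoprotein B RNA, had 28.8 to 48.2 CPM on T3 and 12.2 to 20.9 CPM on PBS. Apobec1 rose (log2 fold change 1.2 ± 0.18, adjusted p = 6.55e-06). Abcg5 and Abcg8, the paired exporters that send cholesterol into bile, averaged 311 ± 48.8 CPM on T3 and 103 ± 32.5 CPM on PBS for Abcg5 (log2 fold change 1.59 ± 0.32, adjusted p = 2.71e-04) and 399 ± 65.7 CPM on T3 and 136 ± 35.3 CPM on PBS for Abcg8 (log2 fold change 1.55 ± 0.37, adjusted p = 0.00148), both higher. Apoc1, an inhibitor of lipoprotein lipase, had 1806 to 3037 CPM on T3 and 3918 to 5406 CPM on PBS. Apoc1 fell (log2 fold change -1.05 ± 0.22, adjusted p = 4.36e-04). Apob averaged 4925 ± 896 CPM on T3 and 6477 ± 1461 CPM on PBS and Apoa1, the main protein of high-density lipoprotein, averaged 6697 ± 2296 CPM on T3 and 4133 ± 1088 CPM on PBS, and neither was called (-0.40 ± 0.21, adjusted p = 0.149 for Apob, and 0.70 ± 0.34, adjusted p = 0.11 for Apoa1).

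Of genes of bile acid handling, 5 of 22 tested were called higher and 7 lower (all genes: 19.0% and 16.2%). Their median was 0.37. The count lower was 4 without T3 replicate 1 or PBS replicate 3, and with the compared groups alone in the fit 9 were called higher. Those called higher were 3 enzymes and 2 transporters. Among the enzymes, Cyp27a1, which starts the acidic pathway, had 584 to 955 CPM on T3 and 202 to 306 CPM on PBS. Cyp27a1 rose (log2 fold change 1.70 ± 0.28, adjusted p = 2.39e-05). Cyp7b1, the next enzyme of that pathway, had 59.7 to 93 CPM on T3 and 15.1 to 22.7 CPM on PBS (log2 fold change 1.86 ± 0.30, adjusted p = 1.45e-05). Cyp2c70, which makes the muricholic acids of mice, had 1954, 2018, 1886 and 1407 CPM in T3 livers, against 326, 321, 306 and 241 CPM in PBS livers (log2 fold change 2.60 ± 0.31, adjusted p = 1.51e-07). Cyp8b1, the enzyme of cholic acid, was not called (log2 fold change 1.09 ± 0.78, adjusted p = 0.289). Among the transporters, Abcc3, an exporter of the blood-facing membrane, had 58.2, 46.2, 38.6 and 44.8 CPM in T3 livers, against 693, 803, 613 and 389 CPM in PBS livers. Abcc3 fell (log2 fold change -3.73 ± 0.31, adjusted p = 3.27e-10). Slc51b, a subunit of the basolateral organic solute transporter, averaged 7.55 ± 2.66 CPM on T3 and 1.23 ± 1.07 CPM on PBS. Slc51b rose (log2 fold change 2.61 ± 0.57, adjusted p = 6.60e-04, and 3.39 without PBS replicate 4). Abcb11, the bile salt export pump, averaged 1369.8 ± 261 CPM on T3 and 859.7 ± 49.5 CPM on PBS and was not called (log2 fold change 0.67 ± 0.39, adjusted p = 0.186). Nr1h4, which encodes the bile acid receptor FXR, averaged 71.2 ± 5.55 CPM on T3 and 137 ± 26.9 CPM on PBS. Nr1h4 fell (log2 fold change -0.94 ± 0.24, adjusted p = 0.00294), while its target Nr0b2 had a log2 fold change of -0.20 ± 0.54 and was not called.

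Most genes of fatty acid oxidation did not pass the test, and of those that did all but 1 fell. Of its genes, 1 of 23 tested were called higher and 6 lower. Their median was -0.39, and the shares over all genes were 19.0% higher and 16.2% lower. Acadm, the medium-chain acyl-CoA dehydrogenase, had 191, 171, 181 and 194 CPM in T3 livers, against 699, 655, 696 and 494 CPM in PBS livers. Acadm fell (log2 fold change -1.79 ± 0.22, adjusted p = 2.17e-07). Acaa2, the mitochondrial thiolase, had 441 to 479 CPM on T3 and 736 to 992 CPM on PBS (log2 fold change -0.93 ± 0.20, adjusted p = 5.55e-04). Cyp4a10, a fatty acid omega-hydroxylase, had 176 to 330.5 CPM on T3 and 959 to 1830.5 CPM on PBS (log2 fold change -2.45 ± 0.49, adjusted p = 2.47e-04), all lower. Etfb, a subunit of the electron transfer flavoprotein, was the only member called higher (log2 fold change 0.63 ± 0.22, adjusted p = 0.0233), a call lost without T3 replicate 2 or PBS replicate 3 (adjusted p of 0.0847 to 0.0848). With the compared groups alone in the fit, 11 members were called lower.

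The genes of glucose metabolism fell more often than they rose. Of these, 1 of 19 tested were called higher and 9 lower. Their median was -0.39. Ppp1r3c, a subunit that brings protein phosphatase to glycogen, had 8.59, 3.97, 3.27 and 4.17 CPM in T3 livers, against 418, 287, 299 and 238 CPM in PBS livers. Ppp1r3c fell (log2 fold change -5.96 ± 0.51, adjusted p = 4.86e-10), with T3 replicate 1 above the other T3 livers. Fbp1, a gluconeogenic phosphatase, averaged 468 ± 123 CPM on T3 and 1124 ± 37.1 CPM on PBS. Fbp1 fell (log2 fold change -1.27 ± 0.33, adjusted p = 0.00318). Gckr, the glucokinase regulator, had 242 to 360.1 CPM on T3 and 507 to 671 CPM on PBS (log2 fold change -1.03 ± 0.21, adjusted p = 2.58e-04). Pcx, pyruvate carboxylase, had 233 to 343 CPM on T3 and 413 to 607 CPM on PBS (log2 fold change -0.84 ± 0.20, adjusted p = 0.0012), both lower. Pygl, liver glycogen phosphorylase, had 627, 634, 717 and 502 CPM in T3 livers, against 372, 312, 316 and 309.5 CPM in PBS livers and was the only member called higher (log2 fold change 0.92 ± 0.37, adjusted p = 0.0497), but although its groups did not overlap the call was lost without a filter on low counts (adjusted p = 0.062), with median-ratio size factors (adjusted p = 0.052), with a filter of 1 CPM (adjusted p = 0.0503) and without T3 replicates 1, 2, 3 or 4 or PBS replicates 1, 2, 3 or 4 (adjusted p of 0.0514 to 0.104). Pck1 averaged 1647 ± 362 CPM on T3 and 1644 ± 687 CPM on PBS and G6pc averaged 362 ± 131 CPM on T3 and 476 ± 85.8 CPM on PBS, and these 2 classical gluconeogenic genes were not called (0.00 ± 0.63, adjusted p = 0.999 for Pck1, and -0.39 ± 0.75, adjusted p = 0.725 for G6pc).

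Some enzymes of amino acid breakdown fell steeply, while the urea cycle genes named here did not pass the test. Of the list, 1 of 30 tested were called higher and 6 lower. Their median was -0.44. With the compared groups alone in the fit the counts were 4 higher and 12 lower. Gnmt, glycine N-methyltransferase, had 297, 493, 371 and 111 CPM in T3 livers, against 2333, 2034.5, 1873.5 and 2053 CPM in PBS livers. T3 replicate 4 was the lowest, but all T3 livers were far below the PBS livers (log2 fold change -2.70 ± 0.46, adjusted p = 2.77e-05). Tdo2, the first enzyme of tryptophan breakdown, had 401, 507, 382 and 145 CPM in T3 livers, against 1991, 1529.5, 2209.8 and 1557 CPM in PBS livers. Tdo2 fell (log2 fold change -2.34 ± 0.55, adjusted p = 0.00119), again lowest in T3 replicate 4. Prodh, proline dehydrogenase, was the member called higher, with 359, 435, 412 and 140.5 CPM in T3 livers, against 87.1, 70.4, 77 and 66.4 CPM in PBS livers (log2 fold change 2.16 ± 0.35, adjusted p = 1.92e-05). Slc25a13, the mitochondrial aspartate-glutamate carrier, had 114 to 122 CPM on T3 and 232 to 302 CPM on PBS. Slc25a13 fell (log2 fold change -1.12 ± 0.26, adjusted p = 0.00123). In the urea cycle itself, Cps1 averaged 3389 ± 988 CPM on T3 and 4967 ± 472 CPM on PBS, Ass1 785 ± 267 CPM on T3 and 1352 ± 305 CPM on PBS, Otc 402 ± 88.7 CPM on T3 and 509 ± 69 CPM on PBS and Arg1 2189 ± 445 CPM on T3 and 1574 ± 183 CPM on PBS, with log2 fold changes of -0.55 ± 0.25, -0.78 ± 0.38, -0.34 ± 0.30 and 0.48 ± 0.22, none of them called.

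Nuclear genes of the respiratory chain rose or were not called. Of these subunit genes, 29 of 77 tested (37.7%) were called higher and 0 lower (all genes: 19.0% and 16.2%), and the median was 0.25. The count of 29 was 18 without T3 replicate 2, and 46 with libraries scaled by their totals alone. Cycs, cytochrome c, had 96.3, 81, 80.5 and 80.8 CPM in T3 livers, against 48.5, 36.1, 51.5 and 51.6 CPM in PBS livers. Cycs rose (log2 fold change 0.85 ± 0.11, adjusted p = 8.84e-07). Cox5a, a subunit of cytochrome oxidase, had 240.1, 284, 194 and 178 CPM in T3 livers, against 117, 108, 106 and 114 CPM in PBS livers (log2 fold change 1.01 ± 0.14, adjusted p = 1.30e-06). Ndufa8 and Ndufa1, subunits of complex I, had 109.7 to 141 CPM on T3 and 60.7 to 70.7 CPM on PBS for Ndufa8 (log2 fold change 0.91 ± 0.13, adjusted p = 2.64e-06) and 94.7 to 135 CPM on T3 and 58 to 62.3 CPM on PBS for Ndufa1 (log2 fold change 0.89 ± 0.14, adjusted p = 9.24e-06). Others were not called, such as Cox4i1 (log2 fold change -0.03 ± 0.12) and Atp5b (0.15 ± 0.13). Of the transcripts of the mitochondrial genome, 0 of 9 tested were called higher and 2 lower. mt-Nd5, a complex I subunit, had 2842 to 3292 CPM on T3 and 3589 to 6129.8 CPM on PBS. mt-Nd5 fell (log2 fold change -0.68 ± 0.17, adjusted p = 0.00241), and mt-Nd6 overlapped between groups with 25.3 to 34.6 CPM on T3 and 30.8 to 72.5 CPM on PBS, its call (log2 fold change -0.71 ± 0.26, adjusted p = 0.0319) lost with libraries scaled by their totals alone (adjusted p = 0.0791) and without T3 replicates 2, 3 or 4 or PBS replicates 1 or 4 (adjusted p of 0.053 to 0.166).

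Around the chain, Ucp2, an uncoupling protein family member, had 171, 156, 124 and 184 CPM in T3 livers, against 17.4, 20, 13.6 and 11.8 CPM in PBS livers. Ucp2 rose (log2 fold change 3.34 ± 0.26, adjusted p = 9.44e-11). Esrra, a receptor that drives mitochondrial genes, had 32.8 to 39.6 CPM on T3 and 20 to 26.8 CPM on PBS. Esrra rose (log2 fold change 0.61 ± 0.16, adjusted p = 0.00374). Twnk, the mitochondrial DNA helicase, had 25.4 to 29.7 CPM on T3 and 35.9 to 44.1 CPM on PBS. Twnk fell (log2 fold change -0.55 ± 0.13, adjusted p = 0.00119). Gabpa, a factor of respiratory genes, was called lower (log2 fold change -0.41 ± 0.14, adjusted p = 0.0187), a call lost with libraries scaled by their totals alone (adjusted p = 0.182), without a filter on low counts (adjusted p = 0.0535) and without T3 replicate 2 or PBS replicates 1 or 3 (adjusted p of 0.0519 to 0.113). Of genes of mitochondrial biogenesis and uncoupling, 5 of 19 tested were called higher and 3 lower (all genes: 19.0% and 16.2%). Their median was 0.17.

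In the citric acid cycle, 8 of 17 tested were called higher and 2 lower. Their median was 0.15. Pdhb, the beta subunit of pyruvate dehydrogenase, had 231, 223, 257 and 188 CPM in T3 livers, against 71, 75, 85.1 and 87.7 CPM in PBS livers. Pdhb rose (log2 fold change 1.49 ± 0.11, adjusted p = 8.10e-12). Cs, citrate synthase, had 299.7 to 392 CPM on T3 and 139.6 to 184 CPM on PBS. Cs rose (log2 fold change 1.2 ± 0.14, adjusted p = 1.08e-07), as did Idh3a above. Idh2, the NADP-dependent isocitrate dehydrogenase, had 102, 88.6, 90.1 and 85.8 CPM in T3 livers, against 302, 362, 269 and 281 CPM in PBS livers. Idh2 fell (log2 fold change -1.73 ± 0.15, adjusted p = 4.86e-10). Idh3a and Idh2 transcripts thus moved in opposite directions. Suclg2, a subunit of succinyl-CoA ligase, had 162 to 224 CPM on T3 and 244 to 350.3 CPM on PBS and was called lower (log2 fold change -0.56 ± 0.17, adjusted p = 0.0127), a call lost without T3 replicate 4 or PBS replicate 1 (adjusted p of 0.057 to 0.0583).

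The cytochrome P450 enzymes that handle foreign compounds fell in greater number than they rose, and the largest changes ran both ways. Of these, 7 of 27 tested were called higher and 13 lower. Their median was -0.71. Cyp2c50 averaged 3.83 ± 2.36 CPM on T3 and 728.6 ± 313 CPM on PBS (log2 fold change -7.57 ± 0.80, adjusted p = 1.99e-08), and Cyp2c37 averaged 29.5 ± 10.9 CPM on T3 and 959 ± 382 CPM on PBS (log2 fold change -5.02 ± 0.54, adjusted p = 2.57e-08). Both belong to the Cyp2c family and fell, as did Cyp2c54 above. Cyp3a11, the main drug-metabolizing Cyp3a of mouse liver, averaged 167 ± 226 CPM on T3 and 2493 ± 861 CPM on PBS. Cyp3a11 fell (log2 fold change -3.90 ± 0.61, adjusted p = 9.02e-06, and -5.51 without T3 replicate 1), while its relatives Cyp3a16, Cyp3a41a and Cyp3a44 rose. Cyp2f2, an enzyme of periportal hepatocytes, averaged 1635 ± 415 CPM on T3 and 282 ± 25.1 CPM on PBS. Cyp2f2 rose (log2 fold change 2.54 ± 0.40, adjusted p = 1.15e-05). Nr1i3, which encodes the xenobiotic receptor CAR, averaged 216 ± 44.9 CPM on T3 and 929 ± 439.6 CPM on PBS. Nr1i3 fell (log2 fold change -2.10 ± 0.59, adjusted p = 0.00623). Cyp2b10, its usual target, averaged 37.6 ± 22 CPM on T3 and 110.0 ± 34.4 CPM on PBS. Cyp2b10 fell (log2 fold change -1.55 ± 0.46, adjusted p = 0.01).

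Conjugating enzymes were called in both directions. Of these, 8 of 36 tested were called higher and 14 lower, against 19.0% and 16.2% over all genes. Their median was -0.39. Ugt2b37, a glucuronosyltransferase, had 93.8, 123, 130.2 and 85.6 CPM on T3, against 0.0562, 0.165, 0.126 and 0 CPM on PBS. Ugt2b37 rose (log2 fold change 10.16 ± 0.64, adjusted p = 1.03e-12). Sult5a1, a sulfotransferase, had 60.4, 149.9, 112 and 89.3 CPM on T3, against 0.225, 0.11, 0 and 0.105 CPM on PBS. Sult5a1 rose (log2 fold change 9.90 ± 0.80, adjusted p = 1.49e-10, and 10.50 without PBS replicate 1). Sult1e1, the oestrogen sulfotransferase, averaged 93.4 ± 88.8 CPM on T3 and 0.163 ± 0.0846 CPM on PBS. Sult1e1 rose (log2 fold change 9.10 ± 1.54, adjusted p = 2.85e-05, and 8.40 without T3 replicate 1). Against these, Ugt1a9 had 0.566, 0.654, 0.552 and 0.527 CPM on T3, against 48.2, 50.2, 57.7 and 45.6 CPM on PBS. Ugt1a9 fell (log2 fold change -6.45 ± 0.68, adjusted p = 1.86e-08). Gsta1, a glutathione transferase, had 7.22, 6.19, 4.83 and 3.91 CPM on T3, against 70, 34.3, 26.5 and 38.5 CPM on PBS. Gsta1 fell (log2 fold change -2.93 ± 0.37, adjusted p = 3.02e-07). Ugt1a9 shares its later exons with the other Ugt1a transcripts, so the assignment of its reads is uncertain.

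Genes that differ between the sexes in mouse liver were prominent, in both directions. Of genes known to be higher in female than in male liver, 11 of 19 tested were called higher and 5 lower. Their median was 3.23. With the compared groups alone in the fit 8 were called lower. These include the Cyp3a rises and the Cyp2b9 and Cyp2b13 falls given above. Cyp17a1, a steroid hydroxylase and lyase, had 1568, 1688, 1583 and 688.3 CPM in T3 livers, against 8.27, 4.66, 12.6 and 14.2 CPM in PBS livers. Cyp17a1 rose (log2 fold change 7.12 ± 0.53, adjusted p = 2.49e-11), lowest on T3 in replicate 4. Cux2, a female-biased repressor of male genes, had 174, 259, 209 and 176 CPM in T3 livers, against 17.7, 16.4, 5.93 and 8 CPM in PBS livers. Cux2 rose (log2 fold change 4.09 ± 0.54, adjusted p = 6.56e-07). A1bg averaged 241 ± 175 CPM on T3 and 0.88 ± 0.778 CPM on PBS. A1bg rose (log2 fold change 8.09 ± 1.11, adjusted p = 1.29e-06, and 8.90 without PBS replicate 4). Sult2a1, a hydroxysteroid sulfotransferase, was called higher (log2 fold change 4.94 ± 1.2, adjusted p = 0.00183), but the call rested on T3 replicate 1 and was lost without T3 replicate 1 (log2 fold change 0.92, adjusted p = 0.482). Of genes known to be higher in male liver, 5 of 15 tested were called higher and 8 lower. Their median was -0.90. The count lower was 5 without T3 replicate 1 or PBS replicate 1. Elovl3, an elongase, had 39, 61.5, 51.9 and 51.3 CPM on T3, against 0.337, 0.165, 0.21 and 0 CPM on PBS. Elovl3 rose (log2 fold change 8.12 ± 0.55, adjusted p = 1.74e-11). Selenbp2, a selenium-binding protein, had 21.2, 50.9, 44.3 and 20.5 CPM on T3, against 1.35, 2.3, 1.01 and 2.46 CPM on PBS. Selenbp2 rose (log2 fold change 4.27 ± 0.44, adjusted p = 1.22e-08). Cyp2d9, a steroid hydroxylase, had 17.5, 13.1, 11 and 8.34 CPM on T3, against 213, 108, 246 and 58.7 CPM on PBS. Cyp2d9 fell (log2 fold change -3.65 ± 0.40, adjusted p = 3.98e-08).

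Of the major urinary proteins that passed the filter on low counts, 9 of 13 tested were called higher and 3 lower. Their median was 8.72. That list held 22 members and 13 passed, several of them through the T3 livers alone, so the counts describe only those. Mup16 had 3.44, 9.4, 8.42 and 9.09 CPM on T3, against 0, 0, 0 and 0 CPM on PBS and was at least 200-fold higher, and Mup20, the pheromone darcin, had 8.92, 10.4, 7.91 and 9.75 CPM on T3, against 27.7, 64.1, 43.6 and 53.1 CPM on PBS. Mup20 fell (log2 fold change -2.35 ± 0.50, adjusted p = 4.73e-04). The summed level of the list ranged over 413 to 1430.2 on T3 and 188 to 265 on PBS, in CPM.

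In the growth hormone axis, which sets these sex-biased genes, 5 of 17 tested were called higher and 3 lower (all genes: 19.0% and 16.2%). Their median was 0.31. Stat5a, a transcription factor of growth hormone signalling, had 82.5, 82.6, 72.7 and 80.8 CPM in T3 livers, against 9.28, 9.76, 11.2 and 12.6 CPM in PBS livers. Stat5a rose (log2 fold change 2.90 ± 0.15, adjusted p = 1.38e-14), and its close relative Stat5b averaged 128 ± 7.81 CPM on T3 and 68.6 ± 6.76 CPM on PBS (log2 fold change 0.90 ± 0.16, adjusted p = 6.65e-05). Socs2, a feedback inhibitor of that signal, had 7.41, 12.2, 10.7 and 13.7 CPM in T3 livers, against 35.8, 50, 26.7 and 25 CPM in PBS livers. Socs2 fell (log2 fold change -1.64 ± 0.27, adjusted p = 1.66e-05). Igfbp3, a carrier of IGF1, had 7.69 to 14.3 CPM on T3 and 24.8 to 42.8 CPM on PBS. Igfbp3 fell (log2 fold change -1.71 ± 0.29, adjusted p = 3.16e-05). Esr1, the oestrogen receptor, had 62.4 to 85.2 CPM on T3 and 9.38 to 27 CPM on PBS. Esr1 rose (log2 fold change 2.06 ± 0.32, adjusted p = 1.04e-05). Igf1 itself was not called (log2 fold change 0.26 ± 0.23, adjusted p = 0.402), and the growth hormone receptor Ghr was called lower (log2 fold change -0.70 ± 0.27, adjusted p = 0.0413), a call lost with libraries scaled by their totals alone (adjusted p = 0.0512), without a filter on low counts (adjusted p = 0.0536) and without T3 replicates 1, 2, 3 or 4 or PBS replicates 1, 2 or 3 (adjusted p of 0.0577 to 0.0959).

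Pericentral hepatocyte genes did not move as a block. Of these genes and Wnt targets, 7 of 19 tested were called higher and 5 lower. Their median was 0.33. The count lower was 2 without T3 replicate 4 or PBS replicate 1 and 3 without T3 replicate 3 or PBS replicate 2. Glul, glutamine synthetase, averaged 1348 ± 275 CPM on T3 and 263 ± 339 CPM on PBS. Glul rose (log2 fold change 2.36 ± 0.67, adjusted p = 0.00642), and because PBS replicate 1 was high the fold change was 3.76 without PBS replicate 1. Rhbg, an ammonium carrier beside it, had 4.53, 4.07, 2.85 and 1.93 CPM on T3, against 0.731, 0.494, 0.463 and 0.418 CPM on PBS. Rhbg rose (log2 fold change 2.66 ± 0.48, adjusted p = 5.91e-05). Lect2, a secreted factor, had 208 to 317 CPM on T3 and 68.6 to 145 CPM on PBS. Lect2 rose (log2 fold change 1.23 ± 0.26, adjusted p = 3.96e-04). Oat, ornithine aminotransferase, had 118, 124, 79.2 and 46.6 CPM in T3 livers, against 1132, 692, 604 and 375 CPM in PBS livers. Oat fell (log2 fold change -2.93 ± 0.44, adjusted p = 5.00e-06), as did Cyp2e1 above and Cyp1a2 (log2 fold change -1.62 ± 0.52, adjusted p = 0.016), the last lost without T3 replicate 4 or PBS replicate 1 (adjusted p of 0.0561 to 0.0584). Lgr5, a Wnt co-receptor gene, averaged 17.5 ± 5.15 CPM on T3 and 6.46 ± 2.31 CPM on PBS. Lgr5 rose (log2 fold change 1.44 ± 0.44, adjusted p = 0.0114). Axin2, the usual Wnt reporter, averaged 18.2 ± 3.66 CPM on T3 and 13.8 ± 6.78 CPM on PBS and was not called (log2 fold change 0.40 ± 0.39, adjusted p = 0.455).

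**Figure D3:**
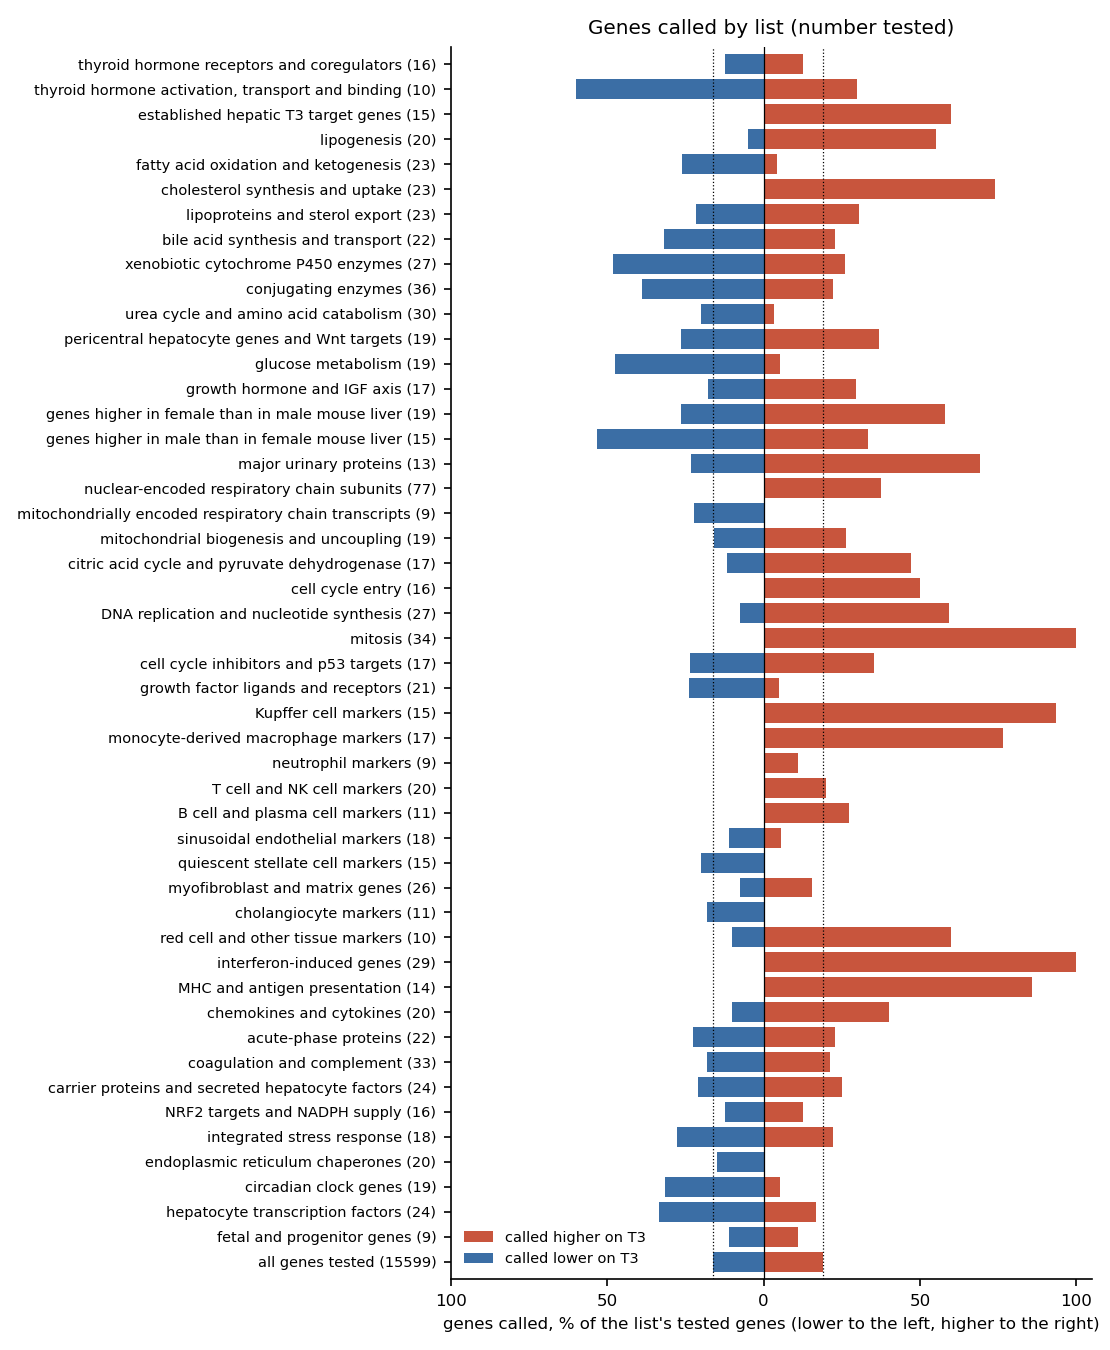
Share of the tested members of each of 48 gene lists that was called higher on T3 (red, to the right) or lower (blue, to the left), with the number tested and all tested genes as the last row. Dotted lines mark the shares over all genes, 19.0% higher and 16.2% lower, and mitosis and interferon-induced genes reach 100% higher.

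T3 livers carried the transcripts of dividing cells. Of the mitosis genes, 34 of 34 tested were called higher and 0 lower. Their median was 4.71. Cdk1, the kinase of mitotic entry, had 24.9, 24.6, 7.73 and 21.6 CPM in T3 livers, against 0.394, 1.21, 0.589 and 0.68 CPM in PBS livers. T3 replicate 3 was below the other T3 livers in Cdk1 and in the summed level of the list, but above every PBS liver (log2 fold change 4.78 ± 0.45, adjusted p = 2.60e-09). Ccna2, cyclin A, had 22.9, 23.3, 7.27 and 18.8 CPM in T3 livers, against 0.619, 0.603, 0.673 and 0.575 CPM in PBS livers (log2 fold change 4.85 ± 0.46, adjusted p = 2.59e-09). Foxm1, a factor that drives mitotic genes, had 3.31 to 12.7 CPM on T3 and 0.21 to 0.523 CPM on PBS (log2 fold change 4.79 ± 0.46, adjusted p = 3.71e-09). Kif23, a kinesin of cell division, had 4.14 to 8.12 CPM on T3 and 0.165 to 0.575 CPM on PBS (log2 fold change 4.31 ± 0.41, adjusted p = 2.29e-09). Mki67, the Ki-67 antigen, averaged 35.9 ± 12.9 CPM on T3 and 1.6 ± 0.771 CPM on PBS (log2 fold change 4.49 ± 0.46, adjusted p = 1.16e-08). The summed level of the 34 genes ranged over 179 to 516 on T3 and 19.9 to 28.7 on PBS, in CPM.

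Genes of entry into the cycle and of replication rose less evenly. Of the entry genes, 8 of 16 tested were called higher and 0 lower. Their median was 0.65. Ccnd1, cyclin D1, had 435, 218, 197 and 309 CPM in T3 livers, against 18.1, 17.1, 12.5 and 26.7 CPM in PBS livers. Ccnd1 rose (log2 fold change 3.96 ± 0.39, adjusted p = 5.09e-09). Ccne1, cyclin E1, had 1.89 to 4.67 CPM on T3 and 0.126 to 0.837 CPM on PBS (log2 fold change 3.01 ± 0.49, adjusted p = 1.69e-05, and 3.89 without PBS replicate 4). E2f8, an E2F factor of hepatocyte polyploidy, had 4.42 to 12.4 CPM on T3 and 0.837 to 2.19 CPM on PBS (log2 fold change 2.49 ± 0.42, adjusted p = 3.00e-05). Myc had a log2 fold change of -0.33 ± 0.35 and was not called. Of the genes of replication, 16 of 27 tested were called higher and 2 lower. Their median was 0.87. Those lower numbered 1 without T3 replicates 2, 3 or 4 or PBS replicates 1 or 2. Rrm2, a subunit of ribonucleotide reductase, had 84.1, 52, 36.9 and 48.7 CPM in T3 livers, against 1.74, 2.63, 5.93 and 2.82 CPM in PBS livers (log2 fold change 4.05 ± 0.37, adjusted p = 1.59e-09). Mcm5, of the replicative helicase, had 9.43 to 23.3 CPM on T3 and 1.01 to 2.14 CPM on PBS (log2 fold change 3.26 ± 0.44, adjusted p = 1.01e-06), both higher and both highest in T3 replicate 1. Uhrf1, which maintains DNA methylation, had 3.12 to 7.46 CPM on T3 and 0.126 to 0.337 CPM on PBS. Uhrf1 rose (log2 fold change 4.08 ± 0.58, adjusted p = 2.70e-06). Mcm10, a replication initiation factor, fell instead, with 6.28, 11.2, 6.17 and 9.26 CPM in T3 livers, against 34.6, 59.2, 53.5 and 47.8 CPM in PBS livers (log2 fold change -2.57 ± 0.52, adjusted p = 2.72e-04). Pcna, the polymerase clamp, had a log2 fold change of 0.33 ± 0.19 and was not called.

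Among inhibitors of the cycle and p53 targets, 6 of 17 tested were called higher and 4 lower. Their median was 0.37. The count higher was 3 without T3 replicate 4, and the count lower 2 without PBS replicate 3. Cdkn1c, the inhibitor p57, had 1.23 to 2.31 CPM on T3 and 5.7 to 9.84 CPM on PBS. Cdkn1c fell (log2 fold change -2.07 ± 0.32, adjusted p = 6.79e-06). Gadd45b, a growth-arrest gene, had 1.24 to 3.03 CPM on T3 and 8.58 to 19.8 CPM on PBS. Gadd45b fell (log2 fold change -2.84 ± 0.57, adjusted p = 2.41e-04). Mdm2, the ubiquitin ligase of p53, had 55.6 to 67.4 CPM on T3 and 31.8 to 38.3 CPM on PBS. Mdm2 rose (log2 fold change 0.82 ± 0.14, adjusted p = 4.95e-05), as did Cdkn2c, the inhibitor p18, with 11.6 to 19.1 CPM on T3 and 4.65 to 7.57 CPM on PBS (log2 fold change 1.47 ± 0.26, adjusted p = 5.56e-05). Cdkn1a, the inhibitor p21, averaged 60.3 ± 23.5 CPM on T3 and 29.1 ± 18 CPM on PBS and was not called (log2 fold change 1.05 ± 0.42, adjusted p = 0.0511). Growth factors and receptors were called higher in 1 of 21 tested and lower in 5. Their median was -0.37. Those lower numbered 3 without T3 replicate 4 or PBS replicates 2 or 3. Fgfr4, the bile acid-linked growth factor receptor of hepatocytes, had 35.6 to 40.5 CPM on T3 and 56.7 to 78.3 CPM on PBS. Fgfr4 fell (log2 fold change -0.73 ± 0.22, adjusted p = 0.0104). Btc, betacellulin, had 0.905 to 1.54 CPM on T3 and 3.94 to 5.44 CPM on PBS. Btc fell (log2 fold change -1.97 ± 0.51, adjusted p = 0.0031), and Hgf and Egfr had log2 fold changes of -0.21 ± 0.28 and -0.16 ± 0.25, neither called. The only ligand called higher was Fgf21, described above.

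Kupffer cell markers were higher on T3 almost throughout. Of these, 14 of 15 tested were called higher and 0 lower. Their median was 2.25. Their summed level ranged over 1463 to 2325 on T3 and 323 to 528 on PBS, in CPM. Cd5l, a macrophage apoptosis inhibitor, had 289, 260.5, 253 and 432 CPM in T3 livers, against 57.4, 42, 34 and 23.6 CPM in PBS livers. Cd5l rose (log2 fold change 2.98 ± 0.33, adjusted p = 3.46e-08). Clec4f, a lectin that marks the resident macrophages of mouse liver, averaged 288 ± 60.2 CPM on T3 and 43.8 ± 10.7 CPM on PBS (log2 fold change 2.72 ± 0.32, adjusted p = 9.02e-08). Timd4, a receptor of resident macrophages, had 22.5, 20.7, 16.2 and 22.4 CPM in T3 livers, against 5.23, 2.85, 2.86 and 2.2 CPM in PBS livers (log2 fold change 2.64 ± 0.29, adjusted p = 3.22e-08). Folr2, a folate receptor, had 27.4 to 46.3 CPM on T3 and 2.25 to 6.69 CPM on PBS (log2 fold change 3.10 ± 0.31, adjusted p = 7.73e-09). C1qb, of complement C1q, had 104 to 170.3 CPM on T3 and 18.4 to 36.8 CPM on PBS (log2 fold change 2.25 ± 0.26, adjusted p = 7.28e-08). T3 replicate 4 was the highest in Cd5l, Folr2 and C1qb. Id3 alone of the list was not called (0.84 ± 0.34, adjusted p = 0.0559).

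Markers of monocyte-derived macrophages also rose, at lower levels. Of these, 13 of 17 tested were called higher and 0 lower. Their median was 1.48, and their summed level ranged over 357 to 544 on T3 and 71.2 to 110.0 on PBS, in CPM. T3 replicate 4 was the highest of them, and the count was 7 without T3 replicate 4. Lyz2, macrophage lysozyme, had 178, 159, 139.9 and 286 CPM in T3 livers, against 49.8, 38, 25.8 and 30.1 CPM in PBS livers (log2 fold change 2.41 ± 0.36, adjusted p = 5.75e-06). Clec7a, the receptor dectin-1, had 5.93 to 24.9 CPM on T3 and 2.44 to 3.07 CPM on PBS (log2 fold change 2.10 ± 0.39, adjusted p = 8.92e-05, and 1.46 without T3 replicate 4). Chil3, a macrophage lectin, had 1.36 to 3.42 CPM on T3 and 0.0549 to 0.209 CPM on PBS (log2 fold change 3.97 ± 0.69, adjusted p = 3.93e-05). Fabp5, a fatty acid-binding protein that hepatocytes can also express, had 102 to 188 CPM on T3 and 5.98 to 27.5 CPM on PBS (log2 fold change 3.32 ± 0.57, adjusted p = 3.65e-05). Trem2, a marker of lipid-associated macrophages, rose (log2 fold change 1.82 ± 0.49, adjusted p = 0.00433), a call lost without T3 replicate 4 (log2 fold change 1.2, adjusted p = 0.0551). Among neutrophil markers, 1 of 9 tested were called higher and 0 lower (the count higher was 0 without T3 replicate 4), and the granule genes S100a8 and S100a9 had log2 fold changes of -0.36 ± 0.63 and -0.41 ± 0.57, not called.

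T cell markers were low in both groups. Of T cell and natural killer cell markers, 4 of 20 tested were called higher and 0 lower. Their median was 0.65, and their summed level ranged over 21.9 to 34.5 on T3 and 8.8 to 20.7 on PBS, in CPM. Those called higher were cytotoxic genes: Gzmb and Gzma, granzymes, with 2.87 to 3.16 CPM on T3 and 0.209 to 0.878 CPM on PBS for Gzmb (log2 fold change 2.60 ± 0.45, adjusted p = 4.28e-05) and 1.24 to 2.64 CPM on T3 and 0.21 to 0.768 CPM on PBS for Gzma (log2 fold change 2.03 ± 0.46, adjusted p = 8.78e-04), and Klrk1, an activating receptor, with 3.07 to 5.44 CPM on T3 and 0.968 to 1.97 CPM on PBS (log2 fold change 1.43 ± 0.24, adjusted p = 2.12e-05). Prf1, perforin, was also called higher (log2 fold change 1.66 ± 0.59, adjusted p = 0.028), a call lost without a filter on low counts (adjusted p = 0.0525) and without T3 replicate 4 or PBS replicates 2 or 3 (adjusted p of 0.0559 to 0.244), with a log2 fold change of 0.94 without T3 replicate 4. The T cell receptor subunits Cd3e and Cd3d had log2 fold changes of 0.15 ± 0.42 and 0.67 ± 0.37, not called. Of B cell and plasma cell markers, 3 of 11 tested were called higher and 0 lower, against the same 19.0% and 16.2%. The count higher was 1 without T3 replicates 2 or 4 or PBS replicates 2, 3 or 4. Ighm, the heavy chain of immunoglobulin M, had 343, 273, 186 and 352 CPM in T3 livers, against 16.1, 28.1, 11.3 and 32.5 CPM in PBS livers. Ighm rose (log2 fold change 3.72 ± 0.64, adjusted p = 3.73e-05). The summed level of the list was 233 to 529.7 on T3 and 36.6 to 97.6 on PBS, in CPM.

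Few endothelial, stellate and bile duct markers were called higher (all genes: 19.0%, and 16.2% lower). Of sinusoidal endothelial markers, 1 of 18 tested were called higher and 2 lower, with summed levels of 558 to 630.0 on T3 and 551 to 757 on PBS, in CPM, and the 3 calls, Kdr, Oit3 and Wnt9b, were each lost without some library (for Kdr with libraries scaled by their totals alone (adjusted p = 0.15), without a filter on low counts (adjusted p = 0.0699) and without T3 replicates 1, 2, 3 or 4 or PBS replicates 1, 3 or 4 (adjusted p of 0.0696 to 0.199), for Oit3 with libraries scaled by their totals alone (adjusted p = 0.0658) and without T3 replicates 1 or 4 or PBS replicates 1 or 3 (adjusted p of 0.0549 to 0.0735), for Wnt9b without a filter on low counts (adjusted p = 0.0752), with the compared groups alone in the fit (adjusted p = 0.0764) and without T3 replicates 1, 2 or 3 or PBS replicates 2, 3 or 4 (adjusted p of 0.0597 to 0.152)). Of quiescent stellate cell markers, 0 of 15 tested were called higher and 3 lower, with summed levels of 569 to 736 on T3 and 709.4 to 795 on PBS, in CPM. Reln, reelin, had 38.8 to 54.3 CPM on T3 and 80.5 to 92.5 CPM on PBS. Reln fell (log2 fold change -0.83 ± 0.21, adjusted p = 0.00269). Ngfr, a neurotrophin receptor, had 2.78 to 5.58 CPM on T3 and 6.65 to 11.9 CPM on PBS. Ngfr fell (log2 fold change -1.06 ± 0.24, adjusted p = 9.17e-04). Of cholangiocyte markers, 0 of 11 tested were called higher and 2 lower, among them Krt23, a keratin, with 0.704 to 1.58 CPM on T3 and 7.9 to 10.5 CPM on PBS (log2 fold change -3.14 ± 0.49, adjusted p = 1.01e-05). The keratin Krt19 had a log2 fold change of -0.36 ± 0.42 and was not called. Which cells the higher macrophage transcripts came from, and whether there were more of them, was not tested.

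Myofibroblast and matrix genes went both ways. Of these, 4 of 26 tested were called higher and 2 lower (all genes: 19.0% and 16.2%). Their median was 0.04. The collagens Col1a1 and Col3a1 averaged 6.56 ± 3.44 CPM on T3 and 4.38 ± 1.75 CPM on PBS for Col1a1 and 37.1 ± 17.3 CPM on T3 and 22.3 ± 6.9 CPM on PBS for Col3a1, and neither was called (0.59 ± 0.44, adjusted p = 0.317 for Col1a1, and 0.74 ± 0.41, adjusted p = 0.169 for Col3a1). Acta2, smooth muscle actin, averaged 0.996 ± 0.552 CPM on T3 and 2.63 ± 1.59 CPM on PBS and was not called (log2 fold change -1.38 ± 0.63, adjusted p = 0.0865). Fn1, fibronectin, which hepatocytes secrete into plasma, had 2534, 2554, 2889 and 2563 CPM in T3 livers, against 1330.5, 1231, 1456 and 902 CPM in PBS livers. Fn1 rose (log2 fold change 1.1 ± 0.22, adjusted p = 2.28e-04). Col12a1, a fibril-associated collagen, had 26, 21.8, 27.2 and 26.9 CPM in T3 livers, against 1.8, 3.46, 4.08 and 3.19 CPM in PBS livers. Col12a1 rose (log2 fold change 3.01 ± 0.30, adjusted p = 4.81e-09). Lum, the proteoglycan lumican, had 11.7 to 18.7 CPM on T3 and 6.3 to 7.69 CPM on PBS. Lum rose (log2 fold change 1.12 ± 0.34, adjusted p = 0.00986). Postn, periostin, and Col14a1 were called lower (-0.76 ± 0.22, adjusted p = 0.00782 for Postn, and -0.59 ± 0.21, adjusted p = 0.0266 for Col14a1). These calls were lost, for Postn, with libraries scaled by their totals alone (adjusted p = 0.0529) and without PBS replicate 4 (adjusted p = 0.0699), and for Col14a1, with libraries scaled by their totals alone (adjusted p = 0.0947) and without T3 replicates 1 or 2 or PBS replicates 3 or 4 (adjusted p of 0.05 to 0.111).

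Interferon-induced genes rose without exception in the list. Of these, 29 of 29 tested were called higher and 0 lower. Their median was 2.36, and their summed level ranged over 1839 to 2087 on T3 and 357 to 432 on PBS, in CPM. Gbp3, a guanylate-binding protein, had 278, 237, 280.0 and 289.6 CPM in T3 livers, against 3.15, 3.18, 3.7 and 1.94 CPM in PBS livers (log2 fold change 6.49 ± 0.43, adjusted p = 3.33e-12). Bst2, the antiviral protein tetherin, had 315, 409.8, 358 and 337 CPM in T3 livers, against 75.9, 73.9, 58.6 and 67.2 CPM in PBS livers (log2 fold change 2.36 ± 0.19, adjusted p = 1.78e-10). Gbp2 had 36.9 to 43.3 CPM on T3 and 5.59 to 8.68 CPM on PBS (log2 fold change 2.63 ± 0.22, adjusted p = 3.78e-10), Ifi27l2a had 16.4 to 31.3 CPM on T3 and 2.36 to 2.7 CPM on PBS (log2 fold change 3.11 ± 0.24, adjusted p = 8.21e-11). Irf7, the factor that amplifies the interferon response, averaged 159 ± 32.7 CPM on T3 and 16.7 ± 5.25 CPM on PBS (log2 fold change 3.25 ± 0.36, adjusted p = 4.50e-08). In these genes the T3 livers were close to each other and far from the PBS livers. Macrophage markers rose in the same livers, as given above, and their part in the interferon genes was not tested.

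Most genes of antigen presentation rose. Of its genes, 12 of 14 tested were called higher and 0 lower. Their median was 0.96. The count was 6 without T3 replicate 4. The class I genes H2-D1 and H2-K1 had 808 to 923 CPM on T3 and 350.3 to 514 CPM on PBS for H2-D1 (log2 fold change 1.08 ± 0.13, adjusted p = 2.34e-07) and 1534 to 1983 CPM on T3 and 711 to 1078 CPM on PBS for H2-K1 (log2 fold change 0.98 ± 0.15, adjusted p = 1.08e-05). Tapbp, which loads peptides, had 172, 199, 153 and 160.3 CPM in T3 livers, against 67.7, 73.9, 51.6 and 63.6 CPM in PBS livers (log2 fold change 1.41 ± 0.17, adjusted p = 2.32e-07). Tap2, a peptide transporter, had 37.9 to 38.4 CPM on T3 and 16.9 to 22.2 CPM on PBS (log2 fold change 0.95 ± 0.16, adjusted p = 1.75e-05). The class II gene Cd74 was called higher (log2 fold change 0.83 ± 0.27, adjusted p = 0.0158), a call lost without T3 replicate 4 or PBS replicate 3 (adjusted p of 0.0724 to 0.136), and so was H2-Ab1 (log2 fold change 0.83 ± 0.28, adjusted p = 0.0224), lost without T3 replicate 4 or PBS replicates 3 or 4 (adjusted p of 0.0546 to 0.18).

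Of chemokines and cytokines, 8 of 20 tested were called higher and 2 lower. Their median was 0.92. Those lower numbered 1 without T3 replicates 1, 2 or 3 or PBS replicates 1, 2, 3 or 4. Ccl6, a macrophage chemokine, had 39.1, 27.8, 27.1 and 57 CPM in T3 livers, against 4.72, 4.88, 3.83 and 3.87 CPM in PBS livers. Ccl6 rose (log2 fold change 3.13 ± 0.24, adjusted p = 8.03e-11). Cxcl9, induced by interferon gamma, had 19.9 to 35.2 CPM on T3 and 6.3 to 9.94 CPM on PBS. Cxcl9 rose (log2 fold change 1.94 ± 0.27, adjusted p = 1.82e-06). Ccl24, an eosinophil attractant, had 3.08 to 6.46 CPM on T3 and 0.506 to 0.758 CPM on PBS. Ccl24 rose (log2 fold change 3.03 ± 0.42, adjusted p = 1.34e-06). Cxcl14 had 1.37 to 9.09 CPM on T3 and 0 to 0.713 CPM on PBS. Cxcl14 rose (log2 fold change 3.98 ± 0.61, adjusted p = 8.20e-06, and 5.10 without PBS replicate 2 and 3.23 without T3 replicate 4). Cxcl1, a neutrophil attractant, had 0.708 to 2.81 CPM on T3 and 5.55 to 25.1 CPM on PBS. Cxcl1 fell (log2 fold change -2.87 ± 0.74, adjusted p = 0.00306, and -2.17 without PBS replicate 2). Ccl2 and Tnf had log2 fold changes of 1.38 ± 0.64 and 0.90 ± 0.54, and Il1b had -0.52 ± 0.39, none of them called.

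Of markers of blood and other tissues, 6 of 10 tested were called higher and 1 lower, and 3 members were at 0 in all 8 libraries. The haemoglobin gene Hba-a2 had 6.56 to 30.2 CPM on T3 and 3.33 to 5.44 CPM on PBS. Hba-a2 rose (log2 fold change 2.02 ± 0.41, adjusted p = 3.14e-04). Alas2, the erythroid enzyme of haem synthesis, had 3.96 to 12.8 CPM on T3 and 24.7 to 35.2 CPM on PBS. Alas2 fell (log2 fold change -1.5 ± 0.32, adjusted p = 5.25e-04). Cela2a, a pancreatic elastase, had 4.42 to 8.95 CPM on T3 and 0 to 0.165 CPM on PBS. Cela2a rose (log2 fold change 6.85 ± 0.70, adjusted p = 1.04e-08, and 8.20 without PBS replicate 2). Markers of the red cell thus did not move together.

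**Figure D4:**
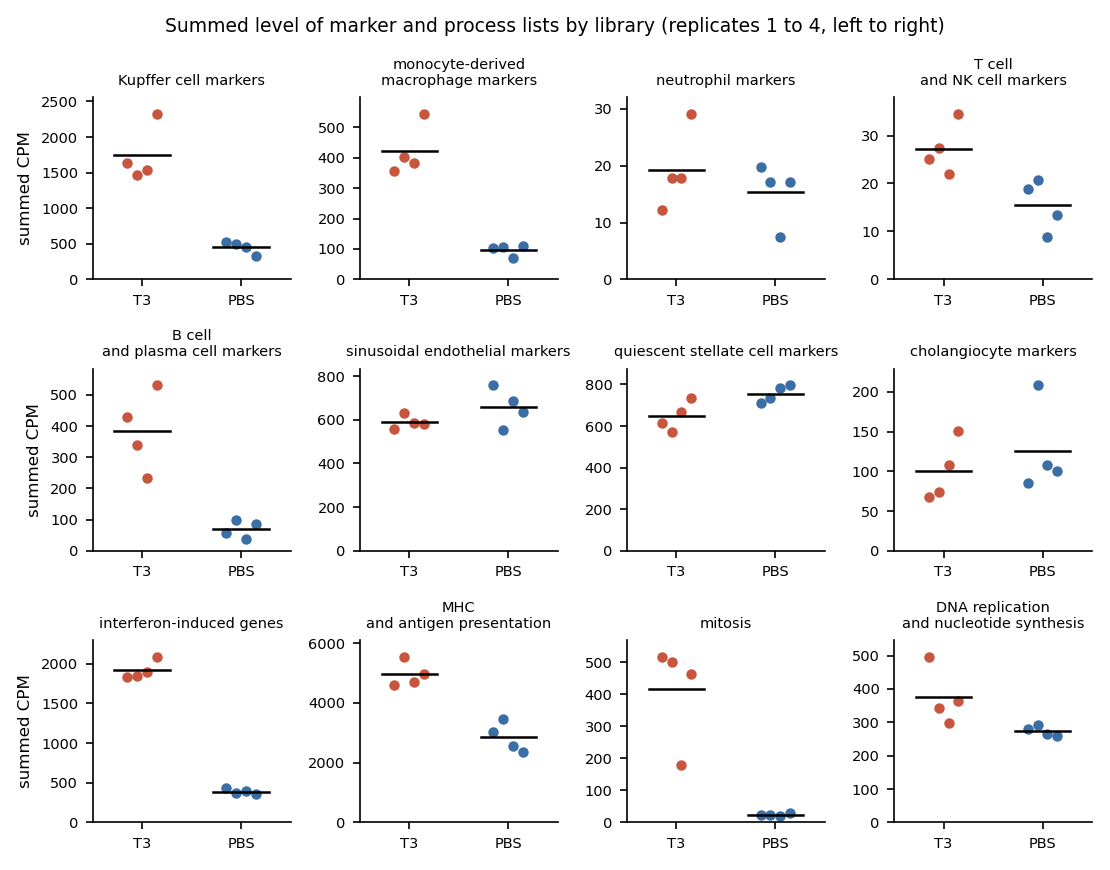
Summed level in CPM (vertical, from 0) of 12 marker and process lists in each library, T3 livers left of PBS livers, replicates 1 to 4 from left to right, with the bar the mean of 4. Kupffer, interferon and mitosis lists do not overlap between groups, endothelial, neutrophil and cholangiocyte lists do, and T3 replicate 3 is the low point in mitosis.

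Among plasma proteins made by hepatocytes the shares called were near those over all genes, 19.0% higher and 16.2% lower. Of acute-phase proteins, 5 of 22 tested were called higher and 5 lower, and with the compared groups alone in the fit 8 and 9. Their median was 0.44. The metallothioneins, which bind zinc and copper, showed the steepest falls: Mt1 had 8.68, 5.83, 4.88 and 8.21 CPM in T3 livers, against 311, 158, 189.7 and 60.5 CPM in PBS livers (log2 fold change -4.70 ± 0.82, adjusted p = 4.32e-05), and Mt2 had 2.64, 2.77, 1.66 and 5.27 CPM in T3 livers, against 211, 104, 136 and 42.9 CPM in PBS livers (log2 fold change -5.32 ± 0.88, adjusted p = 2.23e-05). Apcs, serum amyloid P, had 39.8 to 48 CPM on T3 and 162 to 573 CPM on PBS. Apcs fell (log2 fold change -2.89 ± 0.43, adjusted p = 4.74e-06). Itih3, an inhibitor of trypsin, had 363 to 507 CPM on T3 and 935 to 1069 CPM on PBS. Itih3 fell (log2 fold change -1.27 ± 0.23, adjusted p = 8.70e-05). Orm2, an acid glycoprotein, averaged 67.7 ± 34.3 CPM on T3 and 11.6 ± 9.01 CPM on PBS. Orm2 rose (log2 fold change 2.55 ± 0.68, adjusted p = 0.00403, and 3.18 without PBS replicate 1). Saa1, the serum amyloid of the acute phase, averaged 17.6 ± 2.69 CPM on T3 and 6.53 ± 1.11 CPM on PBS, low in both groups and not called (log2 fold change 1.43 ± 0.73, adjusted p = 0.13).

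Of coagulation and complement genes, 7 of 33 tested were called higher and 6 lower. Their median was -0.03. The count lower was 3 without T3 replicate 1 or PBS replicate 2. C8a and C8b, of the membrane attack complex, had 8.64 to 32.7 CPM on T3 and 146 to 180.2 CPM on PBS for C8a (log2 fold change -3.12 ± 0.41, adjusted p = 6.23e-07) and 9.44 to 16 CPM on T3 and 63.7 to 97.7 CPM on PBS for C8b (log2 fold change -2.74 ± 0.34, adjusted p = 2.23e-07), and both fell. C6, of the same complex, had 24.4 to 36.4 CPM on T3 and 7.24 to 10.8 CPM on PBS. C6 rose (log2 fold change 1.75 ± 0.29, adjusted p = 1.94e-05). F12, coagulation factor XII, had 662 to 838 CPM on T3 and 331 to 384 CPM on PBS. F12 rose (log2 fold change 1.06 ± 0.15, adjusted p = 2.81e-06). Prothrombin (F2) and C3, both abundant, had log2 fold changes of -0.11 ± 0.17 and -0.32 ± 0.23, not called. Of carrier proteins and secreted factors, 6 of 24 tested were called higher and 5 lower. Their median was 0.11. Those lower numbered 3 without T3 replicate 4 or PBS replicate 1, and 3 without a filter on low counts. Hamp2, a relative of hepcidin, had 73.7, 84.2, 11.7 and 2.33 CPM in T3 livers, against 830.3, 484, 559 and 507 CPM in PBS livers. Hamp2 fell (log2 fold change -3.79 ± 0.85, adjusted p = 7.73e-04), with T3 replicates 3 and 4 lower than 1 and 2. Hepcidin itself (Hamp) had a log2 fold change of -0.09 ± 0.55 and was not called. Agt, angiotensinogen, had 412 to 589 CPM on T3 and 685 to 1099 CPM on PBS. Agt fell (log2 fold change -0.93 ± 0.21, adjusted p = 9.16e-04), and Serpina1a had 1518.5 to 2320.1 CPM on T3 and 574 to 984 CPM on PBS. Serpina1a rose (log2 fold change 1.17 ± 0.22, adjusted p = 1.29e-04).

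Of NRF2 targets and NADPH supply genes, 2 of 16 tested were called higher and 2 lower, against 19.0% and 16.2% over all genes. With the compared groups alone in the fit the counts were 5 and 7. Their median was -0.17. Hmox1, haem oxygenase, had 44.9, 43.8, 42 and 74.2 CPM in T3 livers, against 14.6, 11.2, 13 and 18 CPM in PBS livers. Hmox1 rose (log2 fold change 1.85 ± 0.22, adjusted p = 1.19e-07). Taldo1, transaldolase, had 163 to 212 CPM on T3 and 81.6 to 102 CPM on PBS. Taldo1 rose (log2 fold change 1.13 ± 0.12, adjusted p = 2.86e-08). Aox1, aldehyde oxidase, had 85.7 to 132 CPM on T3 and 236 to 325 CPM on PBS. Aox1 fell (log2 fold change -1.32 ± 0.34, adjusted p = 0.00285) and Nqo1, the usual NRF2 reporter, averaged 37.1 ± 11.3 CPM on T3 and 58.9 ± 12.1 CPM on PBS and was not called (log2 fold change -0.67 ± 0.37, adjusted p = 0.171). Of integrated stress response genes, 4 of 18 tested were called higher and 5 lower. Their median was -0.03. Trib3, a pseudokinase, had 1.2 to 3.27 CPM on T3 and 10.6 to 44 CPM on PBS. Trib3 fell (log2 fold change -3.61 ± 0.68, adjusted p = 1.17e-04). Vldlr, a lipoprotein receptor, had 6.45 to 15.5 CPM on T3 and 65 to 91.9 CPM on PBS. Vldlr fell (log2 fold change -2.86 ± 0.33, adjusted p = 9.61e-08). Slc7a5, an amino acid carrier, had 8.56 to 12.4 CPM on T3 and 2.08 to 2.82 CPM on PBS. Slc7a5 rose (log2 fold change 2.16 ± 0.37, adjusted p = 3.57e-05). Atf4, the factor that names the response, had a log2 fold change of 0.13 ± 0.16 and was not called. Of endoplasmic reticulum chaperones, 0 of 20 tested were called higher and 3 lower. Their median was -0.14. The 3 lower, Atf6, Pdia3 and Pdia6, were not called with libraries scaled by their totals alone, and the count was 0 without T3 replicate 2 or PBS replicate 3 and 1 without T3 replicates 1 or 4 or PBS replicate 4.

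Of circadian clock genes, 1 of 19 tested were called higher and 6 lower. Their median was -0.68, and the hour at which livers were taken is not in the labels used here. Bhlhe40, a clock repressor, had 188, 185, 168 and 167 CPM in T3 livers, against 26.1, 85.8, 91.2 and 16.6 CPM in PBS livers. Bhlhe40 rose (log2 fold change 1.69 ± 0.42, adjusted p = 0.00237), with PBS replicates 2 and 3 well above 1 and 4. Nfil3, which opposes Dbp, had 14 to 21.6 CPM on T3 and 36.6 to 69.6 CPM on PBS. Nfil3 fell (log2 fold change -1.58 ± 0.34, adjusted p = 4.93e-04). Rora, a clock activator, had 60.8 to 85 CPM on T3 and 102 to 136 CPM on PBS. Rora fell (log2 fold change -0.71 ± 0.15, adjusted p = 4.61e-04). Per1, a period gene, averaged 8.03 ± 2.54 CPM on T3 and 42.6 ± 20.1 CPM on PBS. Per1 fell (log2 fold change -2.41 ± 0.66, adjusted p = 0.00493). The core activator Arntl had a log2 fold change of -0.07 ± 0.34 and was not called. Dbp averaged 3.32 ± 1.3 CPM on T3 and 15.9 ± 21.5 CPM on PBS, with a PBS SD above its mean, and was not called (log2 fold change -2.26 ± 1.00, adjusted p = 0.08).

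Of hepatocyte transcription factors, 4 of 24 tested were called higher and 8 lower (all genes: 19.0% and 16.2%). Their median was -0.05. The main identity factors Hnf4a and Foxa2 had log2 fold changes of 0.23 ± 0.25 and 0.13 ± 0.21, neither called. The C/EBP factors moved apart: Cebpb had 68.5, 102, 68 and 46.3 CPM in T3 livers, against 8.55, 9.65, 9.55 and 4.81 CPM in PBS livers. Cebpb rose (log2 fold change 3.13 ± 0.35, adjusted p = 4.23e-08), while Cebpa averaged 97.8 ± 22.5 CPM on T3 and 235 ± 51 CPM on PBS. Cebpa fell (log2 fold change -1.26 ± 0.27, adjusted p = 5.36e-04). The PPAR family did as well: Ppard had 70.3 to 127 CPM on T3 and 6.94 to 20.6 CPM on PBS. Ppard rose (log2 fold change 2.97 ± 0.43, adjusted p = 2.89e-06), Pparg had 5.43 to 8.52 CPM on T3 and 20.8 to 36.4 CPM on PBS. Pparg fell (log2 fold change -1.99 ± 0.19, adjusted p = 4.52e-09). Ppara, the main hepatocyte member, had a log2 fold change of 0.42 ± 0.38 and was not called. Esrrg, an oestrogen-related receptor, had 23.1 to 32.2 CPM on T3 and 2.2 to 7.28 CPM on PBS. Esrrg rose (log2 fold change 2.32 ± 0.33, adjusted p = 2.23e-06). Fetal genes were low: Afp averaged 1.19 ± 0.733 CPM on T3 and 1.27 ± 0.655 CPM on PBS and was not called (log2 fold change -0.12 ± 0.44, adjusted p = 0.864). Of the fetal and progenitor list, 1 of 9 tested were called higher and 1 lower, Cdh1, E-cadherin, being the rise, with 101, 124, 122 and 133 CPM in T3 livers, against 7.14, 21.4, 7.07 and 24.6 CPM in PBS livers (log2 fold change 2.99 ± 0.43, adjusted p = 3.00e-06), and Igf2 the fall (log2 fold change -1.63 ± 0.55, adjusted p = 0.0204), which was lost without T3 replicate 2 or PBS replicate 4 (adjusted p of 0.0539 to 0.239), with a log2 fold change of -0.86 without PBS replicate 4.

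The beta receptor's part in this response was asked with the knockout livers given the same diet, oil and hormone. Thrb itself had 33.7, 22.7, 32.5 and 29 CPM in knockout T3 livers, against 44, 44.3, 60.6 and 43.2 CPM in wild-type T3 livers. It had 30.7, 35.7, 42.6 and 34.6 CPM in knockout PBS livers, against 56.9, 62.7, 66.4 and 50.1 CPM in wild-type PBS livers. Every knockout liver was below every wild-type liver of the same treatment, but transcript of the gene was still counted in all of them. Which part of the gene was deleted is not in the labels used here, so a count over the whole gene does not show whether receptor is made. The T3 response differed between genotypes in 1906 of 15599 genes (12.2%), the response being higher in knockout livers in 871 and lower in 1035. Among the 5501 genes called in wild type, 1567 (28.5%) differed, 1565 of them with a sign opposite to the wild-type response. Of the 296 genes that changed by at least 16-fold, 161 (54.4%) differed. In knockout livers T3 called 10.6% of genes higher and 8.11% lower. Genes not called for the difference are not shown to respond alike. Both contrasts hold the wild-type livers, so choosing by the wild-type response favoured opposite signs in advance.

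Dio1 shows the pattern. Knockout livers had 112, 96.7, 121 and 125 CPM on T3, against 4.76, 5.61, 4.31 and 4.2 CPM on PBS, so T3 raised it in the knockout too (log2 fold change 4.59 ± 0.33), and the difference in response, knockout minus wild type, was -6.53 ± 0.48, adjusted p = 2.86e-10. Serpina7 had 42.6, 47.6, 76.8 and 34.3 CPM on T3, against 112, 647, 393 and 51.3 CPM on PBS, in the knockout (difference 6.04 ± 0.90, adjusted p = 3.37e-05). Cyp2b9 had 809, 702, 725 and 711 CPM on T3, against 718.2, 787, 698 and 794 CPM on PBS, in the knockout (difference 8.88 ± 1.15, adjusted p = 4.53e-06). Of the 8 largest rises in wild type, 4 differed between genotypes, Dio1, Cyp3a44 (-5.18 ± 0.77, adjusted p = 3.21e-05), Cyp3a16 (-8.19 ± 1.08, adjusted p = 6.15e-06) and Cyp3a41a (-10.21 ± 1.61, adjusted p = 6.97e-05). Mup17 was not among them (-6.83 ± 3.66, adjusted p = 0.239), with 3.1, 1.36, 1.68 and 2.05 CPM on T3, against 0.15, 0, 0 and 0 CPM on PBS, in the knockout. All 7 of the largest falls given above differed. The rises and falls were chosen by the size of the wild-type response, which the difference subtracts, so such differences were favoured in advance. Thra and Thrb did not pass the test of a difference (0.16 ± 0.29, adjusted p = 0.785 for Thra, and 0.01 ± 0.30, adjusted p = 0.99 for Thrb).

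**Figure D5:**
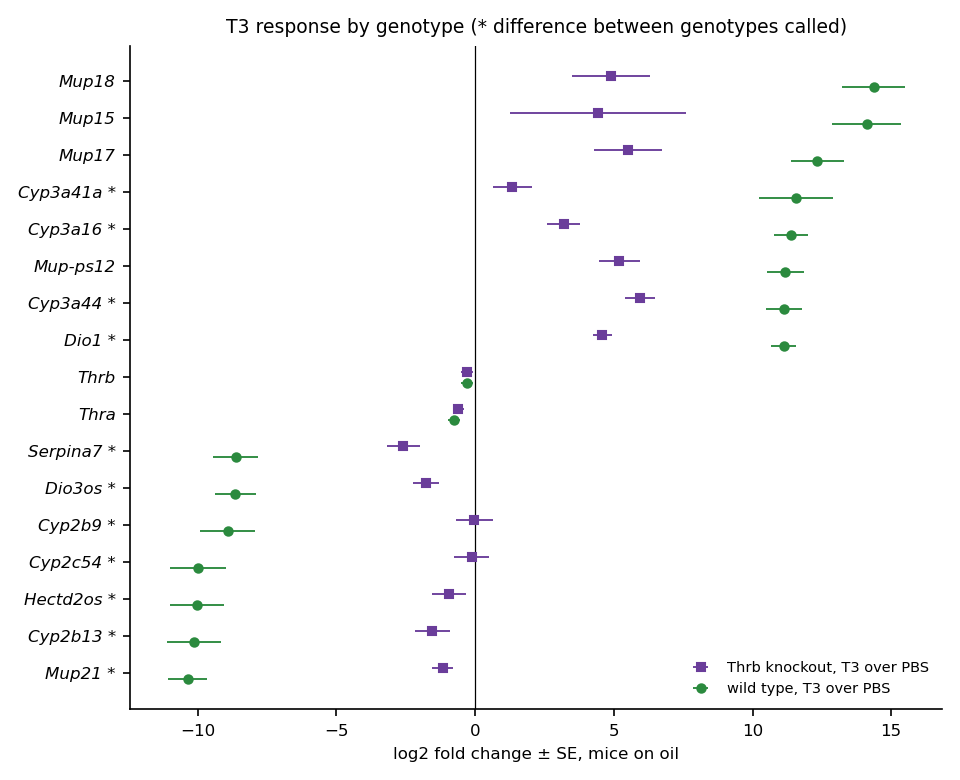
Log2 fold change of T3 over PBS with its SE (horizontal) in knockout livers (squares, above) and wild-type livers (circles, below) on oil for Thrb, Thra, the 8 largest rises and 7 of the largest falls in wild type, from the largest rise at the top to the largest fall at the bottom, with an asterisk where the difference between genotypes was called. The 7 falls lie closer to 0 in knockout livers, and the estimates of the 8 rises are above 0 in both genotypes, with the widest SE for Mup15 in knockout livers.

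By gene list the share that differed varied. Of the xenobiotic cytochrome P450 enzymes 17 of 27 differed between genotypes, of the genes higher in female liver 15 of 19, of the citric acid cycle genes 8 of 17, of the growth hormone axis 8 of 17 and of the T3 targets 7 of 15. Of the lipogenesis genes 6 of 20 differed and of the cholesterol genes 4 of 23. In knockout livers 0 of the lipogenesis genes and 0 of the cholesterol genes were called higher, and 2 of the T3 targets were. Over all genes the share was 12.2%. In mitosis 0 of 34 differed, and in knockout livers T3 raised all 34, with a median of 3.76. Among Kupffer cell markers 0 of 15 differed, and 13 rose in knockout livers, with a median of 1.94. Among interferon-induced genes 6 of 29 differed, and all 29 rose in knockout livers, with a median of 1.96. The counts of genes that differed use the wild-type livers as well, and those of rises in knockout livers do not. The lists were not tested against each other.

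Injury changed the response as well. Between CCl4-injected and oil-injected wild-type livers the T3 response differed in 3722 genes (23.9%), the response being higher in injured livers in 1684 and lower in 2038, and 1875 (34.1%) of the 5501 genes called on oil were among them. With libraries scaled by their totals alone 620 were higher and 5384 lower. Thrb and Thra had higher T3 responses in injured livers. The difference for Thrb was 1.08 ± 0.30, adjusted p = 0.0101, with a log2 fold change of 0.79 ± 0.21 in injured livers, and for Thra it was 1.11 ± 0.30, adjusted p = 0.0088, with 0.35 ± 0.21 in injured livers. For Dio1 the difference was -0.71 ± 0.51, adjusted p = 0.32, not called, and its log2 fold change was 10.41 ± 0.43 in injured livers.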

How the data were processed

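Bulk liver RNA was sequenced from 32 mice in 8 groups of 4, and the libraries carry separate animal numbers. The authors deposited raw whole-number counts per gene. The submitters' processing notes name STAR 2.7.9a with GRCm38, cutadapt, Trim Galore and FastQC 0.11.5. The counting tool, its annotation and its strand setting were not given in the sources used here. Per the labels' protocols, TruSeq v2 or TruSeq Stranded kits were used, without saying which library had which. Symbols from GENCODE vM21 matched 52403 of 52636 genes.

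Counts were fitted in edgeR 4.0.16 (limma 3.58.1, R 4.3.3) with TMM scaling, a filter by filterByExpr (minimum count 10, minimum total 15), 1 mean for each of the 8 groups over all 32 libraries (24 residual degrees of freedom), the quasi-likelihood test and Benjamini-Hochberg adjustment over 15599 genes, called under 0.05. CPM are counts scaled to a common library size with TMM, printed as mean ± SD (n = 4 each) or by library. Bounds use a floor of 3 counts over a group, and counting intervals are 95%. They cover counting error only. DESeq2 1.42.0 and the other settings are alternatives. The fit was tested on simulated counts, and tables and figures were made with python 3.11.15, numpy 2.4.6, pandas 2.3.3 and matplotlib 3.10.9.

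The comparisons and the 48 gene lists were chosen with earlier results of these data known. Genes were named by rule: the 8 largest rises and 8 largest falls that reach 5 CPM without overlap, the 6 rises and 6 falls largest in CPM, up to 4 members of each list by adjusted p and up to 2 against its majority, and Thrb, Thra and Dio1. A few genes chosen this way are left unreported. Other genes printed were chosen after their values were seen.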

Additional observations from a re-analysis of the deposited data

Results flagged for a closer look

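In 20 of 392 groups of 4 livers 1 library lay far from the other 3, by its gap to the nearest of them as a share of the range of the group, and chance alone flags about 1 in 20 such groups. T3 replicate 3 stood apart in Thrb (60.6 CPM, against 43.2 to 44.3 CPM), Fn1 (2889 CPM, against 2534 to 2563 CPM) and Pdia6 (288 CPM, against 239 to 240 CPM). PBS replicate 1 stood apart in Cyp3a41a (0.112 CPM, against 0 CPM in each other), Pygl (372 CPM, against 310 to 316 CPM) and Ndufa8 (60.7 CPM, against 69.4 to 70.7 CPM). T3 replicate 1 stood apart in Dio3 (0.0472 CPM, against 0 CPM in each other), Ppp1r3c (8.59 CPM, against 3.27 to 4.17 CPM), Mup16 (3.44 CPM, against 8.42 to 9.41 CPM), Cycs (96.3 CPM, against 80.5 to 81 CPM), Mcm5 (23.3 CPM, against 9.43 to 11.3 CPM) and Fgfr4 (35.6 CPM, against 40.1 to 40.5 CPM). T3 replicate 4 stood apart in Cyp17a1 (688.3 CPM, against 1568 to 1688 CPM), Fgf21 (92.2 CPM, against 3.47 to 12.8 CPM), Clec7a (24.9 CPM, against 5.93 to 8.47 CPM), Klrk1 (5.44 CPM, against 3.07 to 3.4 CPM) and Hmox1 (74.2 CPM, against 42 to 44.9 CPM). PBS replicate 4 stood apart in Alas2 (35.2 CPM, against 24.7 to 25.8 CPM), Gbp2 (8.68 CPM, against 5.59 to 6.02 CPM) and Cxcl9 (9.94 CPM, against 6.3 to 6.44 CPM).

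The T3 response differed between genotypes in 11 of the 15 genes given with the largest changes, by the interaction term of the fit across all genes. The differences, knockout minus wild type in log2 units, were Dio1 -6.53 ± 0.48, Cyp3a41a -10.21 ± 1.61, Cyp3a16 -8.19 ± 1.08, Cyp3a44 -5.18 ± 0.77, Mup21 9.18 ± 0.85, Cyp2b13 8.58 ± 1.09, Hectd2os 9.09 ± 1.12, Cyp2c54 9.85 ± 1.17, Cyp2b9 8.88 ± 1.15, Dio3os 6.86 ± 0.93 and Serpina7 6.04 ± 0.90. Adjusted p (edgeR) was 2.86e-10 to 6.97e-05. The T3 response, CCl4 minus oil, differed in Thrb (1.08 ± 0.30, adjusted p = 0.0101) and Thra (1.11 ± 0.30, adjusted p = 0.0088).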

How the results depend on the processing

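The number of genes called for T3 against PBS was 5501, and with median-ratio size factors 5485, without a filter on low counts 4825, with a filter of 1 CPM 5240, with the compared groups alone 6002 and with DESeq2 5735. With libraries scaled by their totals alone 1683 were called lower, against 2531. With a test for changes beyond 1.5-fold (glmTreat) 2239 were called, 1414 higher and 825 lower. Leaving out each library gave 4688 to 5006 (2585 to 2806 higher, 2019 to 2233 lower). For the difference between genotypes glmTreat gave 559 (268 higher, 291 lower), and leaving out each library 1413 to 1913 (607 to 812 higher, 800 to 1133 lower). For the difference between CCl4 and oil, scaling by totals alone gave 6004 (620 higher, 5384 lower), no filter gave 1116 higher, glmTreat gave 965 (338 higher, 627 lower), and leaving out each library 2651 to 5079 (1167 to 2429 higher, 1402 to 2650 lower). The cause of these differences was not tested. Same-numbered livers did not deviate together (correlations 0.09, -0.01, 0.10 and 0.04), so the numbers do not pair the samples. With the replicate block the 3 counts were 5448, 1888 and 3672, and with the compared groups alone and the replicate block the first was 5915. Of the 196 named genes, 152 kept their call in each of the 17 settings that tested them and 44 did not (192 of the 196 were tested with the compared groups alone and 193 with a filter of 1 CPM), 26 of them when some library was left out. No direction turned round. Thrb was called only with the compared groups and the replicate block (adjusted p = 0.0407).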

Other observations

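Several genes outside the lists changed by as much as those within them, and the ones given here were chosen after their values were seen. Akr1c18, a progesterone-inactivating aldo-keto reductase, averaged 178 ± 51 CPM on T3 and 0.117 ± 0.119 CPM on PBS and rose (log2 fold change 10.53 ± 0.92, adjusted p = 5.46e-10, and 11.25 without PBS replicate 4). Slc22a7, an organic anion transporter, averaged 566 ± 131 CPM on T3 and 0.59 ± 0.395 CPM on PBS and rose (log2 fold change 9.90 ± 0.65, adjusted p = 2.22e-12). The basement membrane collagens Col4a3 and Col4a4, neighbours on the same chromosome, rose together, Col4a3 averaging 59.7 ± 42.7 CPM on T3 and 0.767 ± 0.578 CPM on PBS (log2 fold change 6.27 ± 0.63, adjusted p = 8.77e-09) and Col4a4 averaging 18.3 ± 12.6 CPM on T3 and 0.88 ± 0.566 CPM on PBS (log2 fold change 4.37 ± 0.65, adjusted p = 4.91e-06). Egr1, an immediate early factor, averaged 80 ± 13.3 CPM on T3 and 10.5 ± 5.31 CPM on PBS and rose (log2 fold change 2.94 ± 0.69, adjusted p = 0.00123). Siglec1, a macrophage lectin, averaged 42.5 ± 14.6 CPM on T3 and 3.6 ± 1.6 CPM on PBS and rose (log2 fold change 3.56 ± 0.31, adjusted p = 5.13e-10). Car3, an abundant carbonic anhydrase of PBS livers, averaged 15.6 ± 12 CPM on T3 and 1728 ± 806 CPM on PBS and fell (log2 fold change -6.79 ± 1.08, adjusted p = 1.20e-05). Nox4, an oxidase that makes hydrogen peroxide, averaged 0.533 ± 0.201 CPM on T3 and 37 ± 12.1 CPM on PBS and fell (log2 fold change -6.11 ± 0.53, adjusted p = 4.97e-10). Mug1, a murinoglobulin protease inhibitor of plasma, averaged 162 ± 26.2 CPM on T3 and 1644.5 ± 333 CPM on PBS and fell (log2 fold change -3.34 ± 0.38, adjusted p = 7.22e-08), and Mug2, its near copy, averaged 32.6 ± 12.6 CPM on T3 and 1027 ± 146 CPM on PBS and fell (log2 fold change -4.98 ± 0.55, adjusted p = 3.81e-08).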
